A study of Mus musculus with 12 samples.

Results

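The last step of basophil formation was described by comparing basophils with Pre-BMPs, the latest of the progenitor populations sorted from mouse bone marrow in this series. The comparison used all 6 libraries of these populations, 3 of each, out of 12 libraries in the series, and all 14560 genes that the deposited table lists. Pre-BMPs were sorted as cells without B220, CD3, Ter119, CD11b, Gr1, Sca1 and surface CDH1 (E-cadherin), and with c-Kit, CD34, CD16/32 and FceRIa. Basophils were sorted as cells without B220, CD4, CD8a, Ter119, Sca1 and c-Kit, and with CD49b and FceRIa, so the 2 gates differ in more than c-Kit. CD11b, Gr1 and CD3 were gates for Pre-BMPs only. Both populations came from C57BL/6 mice, 3 in the series, with no age given, and each was sorted in 2 rounds into TRIzol before full-length amplification of the RNA. The other libraries were from DN-GMPs and Pro-BMPs, the populations placed before Pre-BMPs, and they entered the estimate of the spread and the values given for the step before. The series title places the populations on a path to basophils and mast cells, and the comparison asks which RNAs change as a c-Kit+ progenitor gives way to a c-Kit- basophil.

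Reads on listed genes totalled 35602065 to 37458352 in Pre-BMP libraries and 38246380 to 39471460 in basophil libraries. Every listed gene had at least 10 reads, scaled to a common library size, in at least 3 of the 12 libraries. A gene at 0 in 1 population is thus listed through its reads in others. Levels are given in CPM, reads per 1000000 of the library size that the authors scaled, without the 0.5 read that they added, for libraries 1, 2 and 3 in that order. Changes are differences of mean log2 values, basophils minus Pre-BMPs, with a standard error (SE) and a p from limma adjusted over all genes, and a gene is called where that p is under 0.05. The deposited scaling factors were 1.07 to 1.08 for Pre-BMPs, and for basophils 0.839 to 0.858. Of 14560 genes, 2019 were called higher in basophils (13.9%) and 2408 lower (16.5%), 30.4% in all, and the median change was -0.10. Counts of list members below are to be read beside these shares. With reads on listed genes as library size in place of that scaling, 1379 were called higher and 3813 lower, and the median change was -0.42, a shift of -0.32, so small changes below are relative to the scaling. The libraries of the 2 populations did not overlap for 46.5% of genes, 22.3% with basophils above and 24.2% with basophils below. The SE pools the spread within all 4 populations, so a gene without overlap can miss the threshold through spread among DN-GMP or Pro-BMP libraries. A library number is not stated to mark a mouse, so the tests do not pair libraries by number. Where a population had 1 to 3 reads of a gene in all, the fitted change depends on the 0.5 read added, so the ratio of summed reads is given with an exact 95% binomial interval that covers counting error only. In sorted bulk RNA, fewer cells of a type and less RNA per cell cannot be told apart.

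Basophils are rare granulocytes that bind IgE through FceRI, store histamine and proteases in granules, and release lipid mediators, chemokines and interleukin 4 (IL-4) when the receptor is crosslinked. Mast cells share FceRI, histamine and many proteases with basophils, but keep c-Kit, the receptor of stem cell factor, and finish their development in tissues. Bone marrow basophils arise from granulocyte progenitors under GATA2, C/EBPα and IL-3 signals, and loss of c-Kit marks the mature cell.

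**Figure D1:**
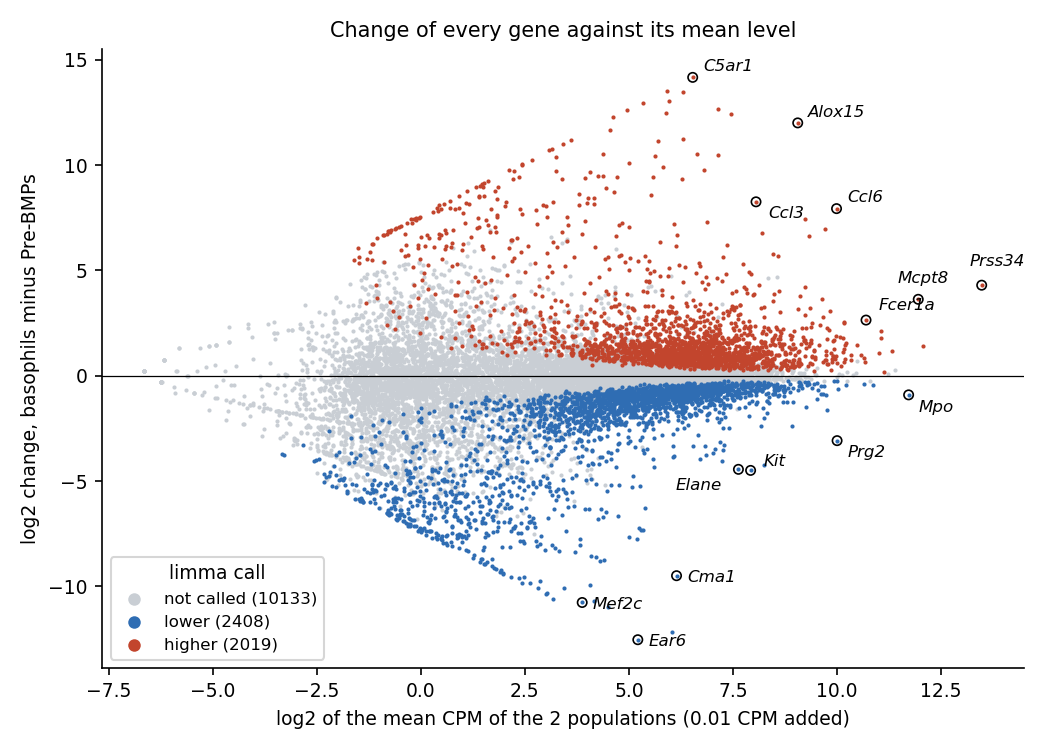
Log2 change (basophils minus Pre-BMPs) of each of 14560 genes against the log2 of the mean CPM of the 2 populations, with 0.01 CPM added. Red points are the 2019 genes called higher and blue points the 2408 called lower, circled genes are named in the text, and the edges slanting outwards are genes with no reads in one population.

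The marker genes of the comparison separated the populations without overlap. Kit, the c-Kit gene, stood at 381, 489 and 519.8 CPM in Pre-BMPs and 10.5, 27.9 and 28.8 CPM in basophils, a log2 change of -4.49 (SE 0.33) and a limma adjusted p of 2.2e-06. Every basophil library was thus far below every Pre-BMP library, but Kit RNA remained above 0 in all 3. Pre-BMPs were sorted with c-Kit and basophils without it, so the gates bear on this separation. Cma1, which encodes chymase, a protease of connective tissue mast cells, had 127, 227 and 68.1 CPM in Pre-BMPs and 0.0463, 0.0463 and 1.57 CPM in basophils, a change of -9.49 (SE 1.15) and an adjusted p of 0.0001 (limma). C5ar1, the receptor of the complement fragment C5a, had 0 reads in all 3 Pre-BMP libraries and 225, 204 and 127 CPM in basophils, at least 3156-fold higher against a floor of 3 reads per library (limma adjusted p 5.3e-07). Ccl3, a chemokine that basophils release on activation, was at 1.85, 1.55 and 1.74 CPM and 605, 513 and 471 CPM, a change of 8.26 (SE 1.89) with an adjusted p of 0.0063 (limma). Alox15, the 12/15-lipoxygenase, was at 1.91, 0 and 0.919 CPM and 1196, 977 and 1017 CPM, a change of 12.01 (SE 2.11) with an adjusted p of 0.0013 (limma). In all 3 rises the lowest basophil library lay far above the highest Pre-BMP library. The change of Cma1 was -11.08 to -8.70 without basophil library 1, 2 or 3, and the change of Alox15 was 9.63 to 13.45 without Pre-BMP library 1, 2 or 3.

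**Figure D2:**
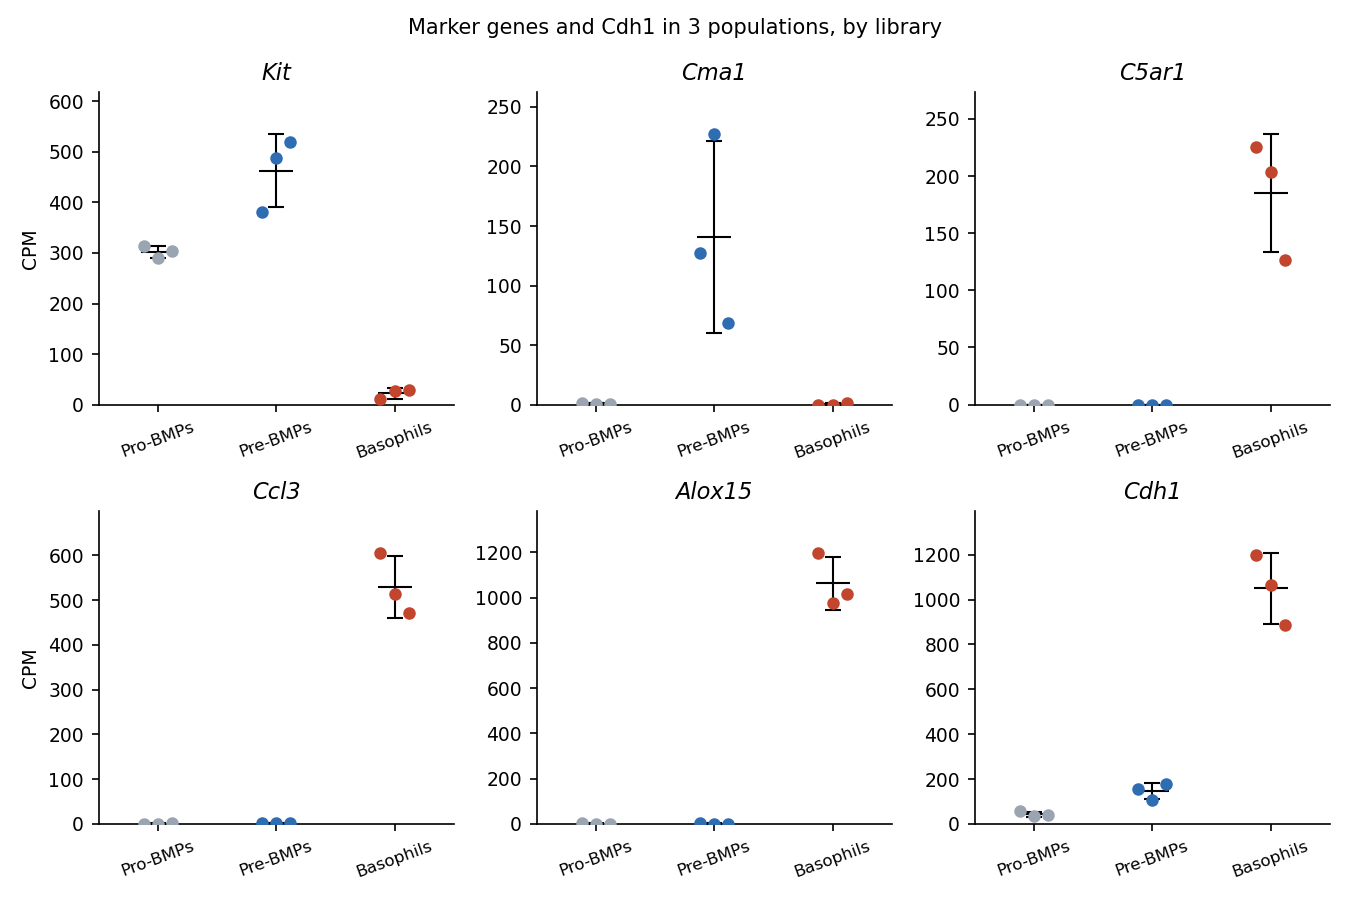
CPM of the 5 marker genes and of Cdh1 in Pro-BMPs, Pre-BMPs and basophils. Each point is 1 library, the long bar is the mean of 3 libraries and the whiskers are its SD. Kit and Cma1 are high in Pre-BMPs and low in basophils, and C5ar1, Ccl3 and Alox15 are high in basophils only among these 3 populations.

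The genes of the sorting gates followed the gates in part. Fcer1a, the IgE-binding chain, was on in both populations and rose from 477, 421 and 475 CPM to 2735, 2771 and 3079 CPM (change 2.64 (SE 0.57), limma adjusted p 0.0044). Itga2, which encodes CD49b, had 8.36, 2.63 and 4.25 CPM in Pre-BMPs and 155, 132 and 85.2 CPM in basophils, with no overlap, but was not called (change 4.73 (SE 2.06), limma adjusted p 0.11). Itgam, the gene of CD11b, which the Pre-BMP gate excluded, rose from 1.48, 1.67 and 2.68 CPM to 72.0, 63.5 and 52.0 CPM (change 5.04 (SE 0.49)). Cd34 fell from 312, 244 and 288 CPM to 26.0, 17.8 and 50.7 CPM (change -3.29 (SE 0.29)), and Ly6c2 (part of the Gr1 epitope family) fell by 1.51 on the log2 scale. The gene of E-cadherin, Cdh1, was at 56.0, 33.6 and 38.8 CPM in Pro-BMPs, sorted for the protein, at 157, 105 and 178 CPM in Pre-BMPs, sorted against it, and at 1201, 1064 and 884 CPM in basophils. Its change at the last step was 2.86 (SE 0.49) (limma adjusted p 0.0012). Cdh1 RNA was thus higher in Pre-BMPs, gated as CDH1-, and in basophils, not gated on it, than in CDH1+ Pro-BMPs. In DN-GMPs it was lower than in all of these, at 0.0212, 0.103 and 0.149 CPM. Fcgr3 and Fcgr2b, the 2 genes behind the CD16/32 gate, rose by 1.30 and 0.84, and Ptprc, of which B220 is an isoform, by 0.44. Ly6a, Ly6c1 and Ly6g were not called, with Ly6a at means of 3.17 and 0.955 CPM in the 2 populations and the other 2 lower still. Itga2 passed the threshold in a fit of the 6 libraries alone, with 5 reads added and with voom weights (limma adjusted p 0.00036 to 0.0083). The call of Ly6c2 did not hold with voom weights (limma adjusted p 0.071, change -1.51). The call of Ptprc did not hold without basophil library 1 or 2, without Pre-BMP library 1 or 2, in a fit of the 6 libraries alone, with quantile normalization and with reads on listed genes as library size (limma adjusted p 0.051 to 0.67, change 0.09 to 0.48).

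Of 27 listed basophil marker genes, 22 were called higher and 1 lower, with a median change of 3.07, against 13.9% higher and a median of -0.10 over all genes. Prss34, a basophil tryptase, had 1289, 829 and 1235 CPM in Pre-BMPs and 19729.8, 21543 and 23725 CPM in basophils (change 4.30 (SE 0.72), limma adjusted p 0.00097). It took 0.156% of reads on listed genes in Pre-BMPs and 2.42% in basophils, and its libraries did not overlap. Mcpt8, the other protease specific to mouse basophils, had 596, 536 and 642 CPM and 6686, 7055 and 8250.2 CPM (change 3.63 (SE 0.15), adjusted p 6.9e-08, limma). Cd200r3, an activating receptor of basophils and mast cells, had 14.5, 10.4 and 16.1 CPM and 1784, 1673 and 1573 CPM (change 6.96 (SE 1.68), limma adjusted p 0.0087). The exception was Gzmb (granzyme B), which fell from 223, 229 and 164 CPM to 17.8, 19.3 and 22.8 CPM (change -3.35 (SE 0.32), limma adjusted p 1.5e-05). Members not called were Itga2, Ms4a2, Il1rl1 and Slc18a2. Il13 and Lilr4b of this list are not among the genes listed. The 8 genes whose read share rose most were Prss34, Mcpt8, Actb, Tmsb4x, Fcer1a, Lcp1, Ccl6 and Cd200r3. Together they took 0.807 to 0.95% of reads on listed genes in Pre-BMP libraries and 5.16 to 5.72% in basophil libraries. Among them Actb, Tmsb4x and Lcp1 encode actin, an actin-binding peptide and an actin bundler, and they rose by 1.41, 2.15 and 1.79. Ms4a2 passed the threshold in a fit of the 6 libraries alone and with voom weights (limma adjusted p 5.7e-07 to 0.00038). The call of Actb did not hold with quantile normalization (limma adjusted p 0.59, change 0.12).

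The region before the start site is shown for 5 genes that rose (Fcer1a, Cd200r3, Prss34, C3ar1 and Sytl3) because each holds AGATAA, a sequence that GATA factors can bind, and GATA2 is the factor most tied to basophils. C5ar1 and Cma1, the markers of either side, are shown beside them and hold no AGATAA on either strand, and variants of AGATAA were not searched. Each sequence is the 250 bases before the RefSeq start of the GRCm38.p6 build, 5′ to 3′ on the gene's strand, with AGATAA or its reverse complement TTATCT in capitals. They lie at chr1:173227230-173227479 (Fcer1a, minus strand), chr16:44943428-44943677 (Cd200r3, plus), chr17:25298144-25298393 (Prss34, plus), chr6:122856158-122856407 (C3ar1, minus), chr17:6658809-6659058 (Sytl3, plus), chr7:16259339-16259588 (C5ar1, minus) and chr14:55944676-55944925 (Cma1, minus). In another annotation (GENCODE) the C5ar1 gene spans chr7:16246743-16259540, so most of its window lies inside the gene as annotated there.
Fcer1a: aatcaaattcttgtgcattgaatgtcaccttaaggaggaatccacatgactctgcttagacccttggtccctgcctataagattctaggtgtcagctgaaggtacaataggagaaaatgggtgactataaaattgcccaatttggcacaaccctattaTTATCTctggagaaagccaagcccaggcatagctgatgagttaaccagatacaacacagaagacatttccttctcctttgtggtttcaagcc
Cd200r3: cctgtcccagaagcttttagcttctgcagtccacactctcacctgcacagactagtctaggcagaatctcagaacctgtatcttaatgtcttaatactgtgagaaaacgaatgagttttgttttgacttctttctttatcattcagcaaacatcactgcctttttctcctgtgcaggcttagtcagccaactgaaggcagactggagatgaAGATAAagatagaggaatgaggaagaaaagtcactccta
Prss34: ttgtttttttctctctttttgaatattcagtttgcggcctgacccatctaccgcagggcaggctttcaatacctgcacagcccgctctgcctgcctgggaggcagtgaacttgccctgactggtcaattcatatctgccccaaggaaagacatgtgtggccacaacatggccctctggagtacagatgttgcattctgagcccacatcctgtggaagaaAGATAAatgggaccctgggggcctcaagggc
C3ar1: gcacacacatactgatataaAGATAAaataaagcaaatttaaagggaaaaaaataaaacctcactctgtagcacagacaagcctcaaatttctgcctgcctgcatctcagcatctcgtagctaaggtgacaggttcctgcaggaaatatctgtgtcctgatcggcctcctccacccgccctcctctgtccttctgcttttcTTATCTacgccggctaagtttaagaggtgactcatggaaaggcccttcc
Sytl3: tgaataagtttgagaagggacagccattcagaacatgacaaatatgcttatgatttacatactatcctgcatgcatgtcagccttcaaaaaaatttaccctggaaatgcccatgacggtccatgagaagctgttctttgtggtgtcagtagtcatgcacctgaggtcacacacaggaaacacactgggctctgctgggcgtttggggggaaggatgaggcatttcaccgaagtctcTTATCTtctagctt
C5ar1: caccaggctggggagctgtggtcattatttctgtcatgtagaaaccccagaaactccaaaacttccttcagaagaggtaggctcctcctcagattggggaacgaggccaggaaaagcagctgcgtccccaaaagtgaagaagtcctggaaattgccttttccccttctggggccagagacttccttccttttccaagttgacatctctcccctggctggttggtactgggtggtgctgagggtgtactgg
Cma1: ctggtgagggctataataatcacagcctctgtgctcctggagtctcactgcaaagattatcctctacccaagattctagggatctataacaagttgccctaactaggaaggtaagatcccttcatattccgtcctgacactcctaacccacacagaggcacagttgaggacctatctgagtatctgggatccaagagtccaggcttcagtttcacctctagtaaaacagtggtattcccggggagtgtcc
Counted back from the base before the start, the match begins at position -92 in Fcer1a, -39 in Cd200r3, -31 in Prss34 and -14 in Sytl3, and C3ar1 holds 2, at -230 and -49. Such windows were at hand for 9782 of 14553 gene symbols measured, and AGATAA on either strand was in 7.61% of them. It was in 7.96% of the 1533 windows of genes called higher and in 7.69% of the 1846 of genes called lower, close to the share of all genes. Among basophil markers it was in 6 of 23, those of Prss34, Cd200r3, Fcer1a, Ms4a2, Il1rl1 and Slc18a2. It was in 3 of 16 windows of mast cell markers, 2 of 8 of eosinophil genes and 0 of 54 of ribosome biogenesis factors. TTGCNNAA, the shape of sites that C/EBP factors can bind, was also in 6 of 23 windows of basophil markers, 3 of 16 of mast cell markers, 2 of 8 of eosinophil genes and 6 of 54 of ribosome biogenesis factors, and it was in 10.5% of windows of genes called higher, 9.37% of those called lower and 9.25% of all. CACGTG, the E-box that MYC and MAX can bind, was in 10.3%, 9.97% and 9.81%, and in 0 of 23 windows of basophil markers. The 3 motifs are different sequences, and whether their matches share bases was not checked. Matches were counted on both strands, and a match is a description of these letters, not a site of binding.

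Receptors for complement, chemokines, lipids and other mediators held some of the largest rises. Of 30 listed, 16 were called higher and 2 lower, and the median change was 2.62. C3ar1, the receptor of the complement fragment C3a, had 0, 0 and 2.57 CPM in Pre-BMPs and 443, 354 and 259 CPM in basophils (change 12.41 (SE 1.76), limma adjusted p 0.00031). With C5ar1, both anaphylatoxin receptors were near or at 0 in Pre-BMPs and far higher in every basophil library. C5ar2, the second C5a receptor, had 4.07, 5.50 and 2.81 CPM and 44.0, 34.5 and 33.7 CPM without overlap, but was not called (limma adjusted p 0.1). Adora2b, an adenosine receptor, had 0, 2.78 and 0 CPM and 179, 122 and 172 CPM (change 11.23 (SE 2.04), limma adjusted p 0.0016). Hrh4, the histamine receptor found on blood cells, had 2.18, 6.35 and 11.0 CPM and 238, 225 and 143 CPM (change 5.20 (SE 1.51), limma adjusted p 0.022). Ptger3, a receptor of prostaglandin E2, had 21.3, 19.1 and 22.7 CPM and 265, 214 and 202 CPM (change 3.43 (SE 0.19), limma adjusted p 3.6e-07), and P2ry14, the UDP-glucose receptor, rose by 2.82. The change of C3ar1 was 11.05 to 15.09 without Pre-BMP library 1, 2 or 3, and the change of Adora2b was 9.85 to 13.94 without Pre-BMP library 1, 2 or 3. C5ar2 passed the threshold in a fit of the 6 libraries alone, with 5 reads added and with voom weights (limma adjusted p 0.00016 to 0.0066). The call of Hrh4 did not hold without basophil library 1 or 2 and without Pre-BMP library 1 or 2 (limma adjusted p 0.053 to 0.08, change 4.56 to 5.33).

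Among chemokine receptors, Cxcr2 had 9.37, 23.9 and 8.56 CPM in Pre-BMPs and 809.6, 712 and 538 CPM in basophils (change 5.77 (SE 0.33), limma adjusted p 3.7e-07). Ccr2, which answers to CCL2, had 6.16, 5.46 and 6.14 CPM and 397, 288 and 221 CPM (change 5.63 (SE 0.31), limma adjusted p 3.6e-07). For both, every basophil library lay far above every Pre-BMP library. Ccr1 had 29.2, 19.7 and 37.5 CPM and 796, 670.3 and 718 CPM, and Ccr3, the eotaxin receptor, 6.12, 1.92 and 7.22 CPM and 106, 97.2 and 60.3 CPM. Neither was called (limma adjusted p 0.18 and 0.072) although their libraries did not overlap. The members that fell were Cx3cr1, the fractalkine receptor, from 100.4, 130.1 and 145 CPM to 6.11, 6.06 and 18.2 CPM (change -3.82 (SE 0.45), limma adjusted p 7.8e-05), and Ccrl2 (change -2.13 (SE 0.62)). Cysltr1, Cysltr2 and Ptger2 had reads in Pre-BMPs, with means of 0.312, 1.42 and 0.674 CPM, and 0 in all basophil libraries, and were not called. Cxcr2 also stood in the list of mature neutrophil markers, whose summed level was 78.3 to 303 CPM in Pre-BMP and 707 to 1006 CPM in basophil libraries. In basophils Cxcr2 itself, at 809.6, 712 and 538 CPM, made up most of that sum. Of 13 members there, 2 rose (Cxcr2 and Lcn2, the latter by 3.07) and Wfdc21 fell by 3.63 on the log2 scale, and the defining S100a8 and S100a9 were at means of 23.01 and 20.1 CPM in basophils, against 50.4 and 44.9 CPM in Pre-BMPs. Neither of the 2 was called (limma adjusted p 0.13 and 0.24). A part of neutrophils in the rise of Cxcr2 was not tested. The change of Lcn2 was 3.72 without Pre-BMP library 1, and the change of Wfdc21 was -4.69 without basophil library 2 and -4.33 without Pre-BMP library 3. Ccr1 passed the threshold in a fit of the 6 libraries alone, with 5 reads added and with voom weights (limma adjusted p 1.9e-06 to 0.031). Ccr3 passed the threshold in a fit of the 6 libraries alone, with 5 reads added and with voom weights (limma adjusted p 0.00012 to 0.0055). The call of Ccrl2 did not hold without basophil library 3, without Pre-BMP library 1, 2 or 3 and in a fit of the 6 libraries alone (limma adjusted p 0.0504 to 0.075, change -2.23 to -1.43). The call of Wfdc21 did not hold without basophil library 1, without Pre-BMP library 1 or 2, in a fit of the 6 libraries alone, with quantile normalization and with voom weights (limma adjusted p 0.052 to 0.12, change -3.63 to -2.08). Cysltr2 passed the threshold without Pre-BMP library 1 (limma adjusted p 0.022). Ptger2 passed the threshold without Pre-BMP library 2 (limma adjusted p 0.002). S100a8 passed the threshold with reads on listed genes as library size and without Pre-BMP library 3 (limma adjusted p 0.0057 to 0.041).

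Cytokine receptors moved in both directions: of 39 listed, 14 were called higher and 9 lower, with a median of 0.80. With genes at 0 reads in 1 population set at their bound that median was 0.78, and the other list medians given were the same to 2 decimals. Il7r, the α chain of the IL-7 and TSLP receptors, had 2 reads in all Pre-BMP libraries and 135, 113 and 106 CPM in basophils, 9052-fold higher (interval 2505 to 74753) (limma adjusted p 1.6e-05). Crlf2, its partner in the TSLP receptor, rose from 30.7, 29.5 and 32.3 CPM to 83.5, 68.4 and 76.1 CPM (change 1.30 (SE 0.18), limma adjusted p 0.00031). The 2 chains of the IL-18 receptor rose together. Il18r1 had 0.61, 0 and 2.18 CPM and 183, 140.2 and 136 CPM (change 9.33 (SE 1.72), limma adjusted p 0.0018), and Il18rap 20.2, 8.82 and 16.8 CPM and 855, 737 and 672 CPM (change 5.70 (SE 0.46), limma adjusted p 4.9e-06). Il1rl1, the IL-33 receptor, had 181, 145 and 153 CPM and 198, 181 and 190.4 CPM, a little above in every basophil library but not called (limma adjusted p 0.91), while its partner Il1rap rose by 2.82 (SE 0.49). The β chains of the IL-3 receptor rose as well: Csf2rb, shared with IL-5 and GM-CSF, had 335, 275 and 379 CPM and 2505, 1577 and 1844 CPM (change 2.57 (SE 0.24), limma adjusted p 1.7e-05). Csf2rb2, the β chain used by IL-3 alone, rose by 2.88 (SE 0.64), but the 2 genes are near copies and reads could be split between them. The change of Il18r1 was 7.03 to 10.94 without Pre-BMP library 1, 2 or 3. Il7r was 5978-fold higher without Pre-BMP library 2.

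In a fit of the 6 libraries alone, 5 cytokine receptors were called lower in place of 9. Ifngr1, a chain of the interferon γ receptor, had 412, 487 and 559 CPM in Pre-BMPs and 114, 132 and 110.5 CPM in basophils (change -2.03 (SE 0.11), limma adjusted p 3.6e-07), lower in every basophil library. Tnfrsf1a, a receptor of TNF, had 44.3, 32.9 and 36.5 CPM and 6.66, 10.04 and 2.17 CPM (change -2.84 (SE 0.42)), and Cd27, a costimulatory receptor, 53.1, 59.7 and 56.6 CPM and 5.57, 3.82 and 10.8 CPM (change -3.20 (SE 0.31)). Il5ra, the IL-5 receptor of eosinophils, had 5.82, 7.09 and 13.1 CPM and 0.0925, 0 and 3.57 CPM (change -5.65 (SE 1.55), limma adjusted p 0.017). Epor, the erythropoietin receptor, had 24.1, 19.5 and 29.1 CPM and 4.56, 2.08 and 0.0692 CPM (change -4.71 (SE 1.16), limma adjusted p 0.0095). Csf2ra and Il21r fell by 0.96 and 1.02 on the log2 scale, and Flt3, at a mean of 2.10 CPM in Pre-BMPs, had 0 reads in all basophil libraries, at least 30.3-fold lower (limma adjusted p 0.0049). The change of Tnfrsf1a was -2.20 without basophil library 3, and the change of Il5ra was -7.88 to -3.74 without basophil library 2 or 3. The change of Epor was -5.86 to -2.95 without basophil library 1, 2 or 3. The call of Il5ra did not hold without basophil library 1, without Pre-BMP library 3 and in a fit of the 6 libraries alone (limma adjusted p 0.053 to 0.077, change -5.65 to -5.30). The call of Epor did not hold in a fit of the 6 libraries alone (limma adjusted p 0.052, change -4.71). The call of Csf2ra did not hold without basophil library 1, without Pre-BMP library 1, 2 or 3 and in a fit of the 6 libraries alone (limma adjusted p 0.051 to 0.067, change -0.997 to -0.61). The call of Il21r did not hold without basophil library 3, without Pre-BMP library 1, in a fit of the 6 libraries alone and with voom weights (limma adjusted p 0.057 to 0.098, change -1.02 to -0.69). The call of Flt3 did not hold with voom weights (limma adjusted p 0.079). Flt3 was at least 14.9-fold lower without Pre-BMP library 1.

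Paired and inhibitory surface receptors rose in most cases: of 26 listed, 15 were called higher and 2 lower, with a median of 1.48. Cd200r1 and Cd200r4, relatives of Cd200r3 and receptors for or related to CD200, had 12.3, 12.2 and 13.4 CPM and 4.92, 1.90 and 4.44 CPM in Pre-BMPs, and 313, 295 and 255 CPM and 139, 103 and 119 CPM in basophils. Their changes were 4.50 (SE 0.33) and 5.11 (SE 0.74), with limma adjusted p of 2.3e-06 and 0.00037. Lilrb4a, an inhibitory receptor with a near copy in the genome, had 5.82, 7.99 and 3.01 CPM and 683, 584 and 474 CPM (change 6.79 (SE 2.05), limma adjusted p 0.027). Cd300lb, an activating receptor, had 14.4, 3.58 and 11.3 CPM and 272, 201 and 187 CPM (change 4.70 (SE 0.43)), and its relative Cd300lf rose by 6.99 from a mean of 0.0383 CPM to 5.02 CPM. Cd244a (2B4) had 24.1, 15.2 and 27.3 CPM and 497, 428 and 312 CPM (change 4.23 (SE 0.25), limma adjusted p 4.9e-07). The activating Fcgr3 had 380.5, 318 and 361 CPM and 894, 825 and 887 CPM and the inhibitory Fcgr2b 145, 125 and 121 CPM and 255, 228 and 213 CPM, so both IgG receptors were higher in all basophil libraries. The 2 that fell are sialic acid binding lectins, Siglecf, from 154, 167 and 191 CPM to 66.2, 86.4 and 82.0 CPM (change -1.13 (SE 0.25), limma adjusted p 0.0056), and Siglecg, from 13.9, 3.70 and 16.2 CPM to 0, 0 and 3.25 CPM (change -6.96 (SE 1.77), limma adjusted p 0.012). Siglece was at 0 in all basophil libraries and not called. The change of Cd300lb was 4.09 without Pre-BMP library 2, and the change of Cd300lf was 6.11 to 7.65 without Pre-BMP library 1 or 3. The change of Siglecg was -9.67 to -5.60 without basophil library 1, 2 or 3 and -7.63 without Pre-BMP library 2. The call of Lilrb4a did not hold without basophil library 1, 2 or 3 and without Pre-BMP library 1, 2 or 3 (limma adjusted p 0.056 to 0.076, change 6.39 to 7.10). The call of Siglecg did not hold in a fit of the 6 libraries alone and with voom weights (limma adjusted p 0.062 to 0.13, change -6.96 to -6.95).

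Innate sensors were mostly low in both populations, and of 22 listed 8 were called higher and 3 lower. With reads on listed genes as library size 5 were higher and 5 lower. Myd88, the adaptor of Toll-like, IL-1 and IL-18 receptors, had 35.8, 41.2 and 53.6 CPM in Pre-BMPs and 145, 128 and 115 CPM in basophils (change 1.58 (SE 0.17), limma adjusted p 3.7e-05), above in every basophil library. Nlrp3, the inflammasome sensor, had 0.203, 0.173 and 0.23 CPM and 30.4, 22.2 and 4.68 CPM (change 6.13 (SE 1.29), limma adjusted p 0.0039). Tlr1 and Tlr4 were called higher, at basophil levels of 3.49, 0.625 and 4.17 CPM and 4.09, 2.20 and 3.07 CPM. Tlr1 had 2 reads in all Pre-BMP libraries and was 212-fold higher (interval 58.4 to 1760.3), and the change of Tlr4 was 5.23. Tlr2, which pairs with TLR1, fell from 15.6, 8.84 and 6.93 CPM to 0.74, 1.32 and 0 CPM (change -5.45 (SE 1.34), limma adjusted p 0.0097), and Nod1 fell by 1.87 on the log2 scale. Clec7a (dectin-1) had 2.91, 1.30 and 1.09 CPM in Pre-BMPs and 0 reads in all basophil libraries, at least 25.5-fold lower, and Cd14, also at 0 in basophils, was not called. The change of Nlrp3 was 6.95 without basophil library 3, and the change of Tlr4 was 3.69 to 6.72 without Pre-BMP library 1 or 2. The change of Tlr2 was -6.73 to -3.30 without basophil library 1, 2 or 3. The call of Tlr2 did not hold in a fit of the 6 libraries alone (limma adjusted p 0.063, change -5.45). The call of Nod1 did not hold without basophil library 2, without Pre-BMP library 1 or 3, in a fit of the 6 libraries alone and with voom weights (limma adjusted p 0.061 to 0.11, change -1.95 to -1.16). Tlr1 was 140.2-fold higher without Pre-BMP library 2.

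Most genes of the IgE receptor pathway rose, with a smaller median than the mediator receptors above. Of 25 listed, 17 were called higher and 1 lower, with a median of 0.82. The receptor is a complex of the IgE-binding α chain (Fcer1a), the β chain (Ms4a2) and the signalling γ chain (Fcer1g), of which Fcer1a and Fcer1g were called higher. Fcer1g had 232, 203 and 200.3 CPM in Pre-BMPs and 1024, 989.9 and 1044 CPM in basophils (change 2.27 (SE 0.15), limma adjusted p 8.9e-07). Ms4a2 had 1042, 1070.1 and 1147 CPM and 1743, 1736 and 1766 CPM, above in every basophil library but not called (change 0.69 (SE 0.31), limma adjusted p 0.11). Prkcb, a protein kinase C, had 16.6, 24.1 and 14.8 CPM and 142, 112 and 111 CPM (change 2.74 (SE 0.22)). The adaptors Lat2 and Gab2 rose by 2.31 (SE 0.21) and 1.94 (SE 0.39), with 522, 495 and 491 CPM and 222, 205 and 238 CPM in basophils. The kinases at the head of the pathway rose by less, Lyn by 0.93 (SE 0.19) and Syk by 0.68 (SE 0.17) (limma adjusted p 0.0032 and 0.009). Cbl, a ubiquitin ligase that limits the signal, was the member that fell, from 50.02, 22.4 and 50.9 CPM to 24.4, 12.2 and 8.28 CPM (change -1.51 (SE 0.40), limma adjusted p 0.014), with libraries that overlap. The T cell markers Cd3e, Cd3d, Cd3g, Cd4, Cd8a, Trac and Trbc2 are not among the genes listed. Of the 3 members listed, Thy1 rose to a mean of 6.97 CPM, Lck stood at means of 4.82 CPM in Pre-BMPs and 5.47 CPM in basophils, and Tcf7 was at 0 in basophils. The change of Thy1 was 6.69 to 9.46 without Pre-BMP library 1, 2 or 3. Ms4a2 passed the threshold in a fit of the 6 libraries alone and with voom weights (limma adjusted p 5.7e-07 to 0.00038). The call of Syk did not hold with reads on listed genes as library size (limma adjusted p 0.096, change 0.36). The call of Cbl did not hold without basophil library 3, without Pre-BMP library 1 or 3 and in a fit of the 6 libraries alone (limma adjusted p 0.051 to 0.065, change -1.51 to -1.16).

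Genes of secreted mediators known from basophils were among the rises. Of 8 chemokines listed, 4 were called higher and 1 lower. Ccl6 had 10.1, 8.03 and 6.62 CPM in Pre-BMPs and 2477, 1976 and 1617 CPM in basophils (change 7.94 (SE 0.34), limma adjusted p 7.7e-08). Its genomic neighbour and relative Ccl9 had 219, 154 and 207 CPM and 1883, 1515 and 1453 CPM (change 3.07 (SE 0.15), limma adjusted p 1.7e-07). Ccl4, the relative of Ccl3, had 3.29, 0.249 and 0.785 CPM and 153, 139.5 and 107 CPM (change 7.23 (SE 1.95), limma adjusted p 0.015). For each of the 3, all basophil libraries lay above all Pre-BMP libraries. Pf4 (platelet factor 4) had 2.64, 5.71 and 9.69 CPM in Pre-BMPs and 0 reads in all basophil libraries, at least 86.7-fold lower (limma adjusted p 7.9e-06). Of 13 cytokine and growth factor genes, 8 were called higher and 1 lower, with a median of 2.22. Il4, the signature cytokine of basophils, had 9.78, 13.1 and 11.6 CPM and 121, 110.5 and 115 CPM (change 3.33 (SE 0.97), limma adjusted p 0.022), and Il6 20.4, 13.6 and 30.9 CPM and 179, 168 and 194 CPM (change 3.14 (SE 0.47), limma adjusted p 0.00043). The change of Ccl4 was 8.18 without Pre-BMP library 1. The call of Ccl4 did not hold without Pre-BMP library 2 (limma adjusted p 0.061, change 6.35). The call of Il4 did not hold without basophil library 1, 2 or 3 and without Pre-BMP library 1, 2 or 3 (limma adjusted p 0.053 to 0.065, change 3.22 to 3.43).

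The other growth factors that rose act on many cells. Hgf (hepatocyte growth factor) had 67.8, 52.2 and 54.5 CPM in Pre-BMPs and 598, 593 and 464 CPM in basophils (change 3.25 (SE 0.29), limma adjusted p 9.8e-06). Csf1, the macrophage growth factor, had 139.8, 118 and 179.8 CPM and 855, 615 and 577 CPM (change 2.22 (SE 0.34), limma adjusted p 0.00055). Osm (oncostatin M) had 10.6, 10.4 and 10.5 CPM and 77.5, 84.8 and 60.5 CPM (change 2.81 (SE 0.39), limma adjusted p 0.00028). Ltb (lymphotoxin β) had 2.74, 3.72 and 5.69 CPM and 105, 78.6 and 74.1 CPM (change 4.45 (SE 1.34), limma adjusted p 0.026). Vegfa fell by 2.04 on the log2 scale, and Il18 was at 0 in all basophil libraries and not called. Il13, Il5, Il3 and Il9 are not among the genes listed. The call of Ltb did not hold without basophil library 1, 2 or 3 and without Pre-BMP library 1 or 2 (limma adjusted p 0.056 to 0.077, change 4.20 to 4.55). The call of Vegfa did not hold without basophil library 1 or 2, without Pre-BMP library 1 or 2, in a fit of the 6 libraries alone, with quantile normalization and with voom weights (limma adjusted p 0.058 to 0.17, change -2.21 to -1.41).

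The enzymes of lipid mediators moved in both directions: of 17 listed, 4 were called higher and 5 lower. The higher count was 2 with reads on listed genes as library size and 2 without any one of basophil libraries 2 and 3 and Pre-BMP libraries 2 and 3. Lipoxygenase genes rose. Alox8, outside the list, had 1 read in Pre-BMPs and 177, 144 and 154 CPM in basophils, 24344-fold higher (interval 4369 to 961582) (limma adjusted p 4.1e-06). Alox5ap, the partner protein of 5-lipoxygenase, had 148, 130.2 and 129 CPM and 638, 589 and 640.3 CPM (change 2.20 (SE 0.11), limma adjusted p 1.7e-07), and Alox5 itself 446, 389.6 and 442 CPM and 1571, 1570.0 and 1619.6 CPM (change 1.90 (SE 0.63), limma adjusted p 0.041). Downstream of them, Lta4h, which makes leukotriene B4, fell from 352, 353 and 321 CPM to 195, 214 and 229.8 CPM (change -0.68 (SE 0.08), limma adjusted p 5.9e-05), and Ltc4s, which makes leukotriene C4, had 1.08, 2.01 and 0.861 CPM and 1.78, 0.602 and 1.64 CPM and was not called. On the prostaglandin side, Ptgs1 (cyclooxygenase 1) had 10.8, 33.6 and 12.02 CPM and 0, 2.98 and 4.11 CPM (change -4.97 (SE 1.69), limma adjusted p 0.045). Tbxas1 (thromboxane synthase) had 84.5, 54.5 and 71.6 CPM and 6.18, 19.3 and 24.5 CPM (change -2.27 (SE 0.43), limma adjusted p 0.002), and Ptgr1, which inactivates leukotriene B4 and prostaglandins, fell by 3.02 on the log2 scale. All 3 lay lower in every basophil library than in any Pre-BMP library. Pla2g4a, the phospholipase that frees arachidonic acid, rose by 0.59 (limma adjusted p 0.043), and Pla2g7 was at 0 reads in all Pre-BMP libraries and not called. The change of Ptgs1 was -6.45 to -2.22 without basophil library 1, 2 or 3, and the change of Tbxas1 was -1.67 without basophil library 1. The call of Alox5 did not hold without basophil library 1, 2 or 3, without Pre-BMP library 1, 2 or 3, with quantile normalization and with reads on listed genes as library size (limma adjusted p 0.072 to 0.14, change 1.32 to 1.93). The call of Ptgs1 did not hold without Pre-BMP library 1, 2 or 3 and in a fit of the 6 libraries alone (limma adjusted p 0.079 to 0.15, change -5.27 to -4.45). The call of Pla2g4a did not hold without basophil library 1, 2 or 3, without Pre-BMP library 2 or 3, in a fit of the 6 libraries alone, with quantile normalization and with reads on listed genes as library size (limma adjusted p 0.054 to 0.32, change 0.27 to 0.67). Alox8 was 16064-fold higher without Pre-BMP library 3.

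Histamine genes as a list stayed near the shares of all genes, and single members moved in both directions. Hdc, the enzyme that makes histamine, had 959.6, 817 and 845 CPM in Pre-BMPs and 1811, 1796 and 1515 CPM in basophils (change 0.96 (SE 0.13), limma adjusted p 0.00026). Slc18a2, the vesicle transporter, had 409.6, 354 and 490.0 CPM and 369, 355 and 419 CPM, and Srgn, the proteoglycan core that packs granules, 1163, 1069.7 and 1085 CPM and 1107, 1108 and 1198 CPM. Both overlapped between populations and were not called (limma adjusted p 0.73 and 0.61). Hnmt, which methylates histamine, fell from 18.0, 27.1 and 25.9 CPM to 2.38, 10.6 and 8.19 CPM (change -1.98 (SE 0.46), limma adjusted p 0.0067), and Maoa, a monoamine oxidase, from 11.7, 24.6 and 15.3 CPM to 0, 1.90 and 0 CPM (change -8.01 (SE 1.51), limma adjusted p 0.002). The related Maob went from 0 reads in all Pre-BMP libraries to a mean of 1.52 CPM. In all, 2 of 10 listed genes were called higher (Hdc and Maob) and 2 lower (Hnmt and Maoa). Each is 20%, against 13.9% higher and 16.5% lower over all genes. The change of Hnmt was -1.32 without basophil library 1, and the change of Maoa was -10.47 to -6.79 without basophil library 1, 2 or 3. The call of Hdc did not hold with quantile normalization (limma adjusted p 0.095, change 0.32). Srgn passed the threshold with quantile normalization and with reads on listed genes as library size (limma adjusted p 9.7e-06 to 0.0034). The call of Maob did not hold without basophil library 1, 2 or 3, without Pre-BMP library 1, 2 or 3, with 5 reads added and with voom weights (limma adjusted p 0.051 to 0.12).

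Several granule genes of mast cells were present in Pre-BMPs and at or near 0 in basophils. Of 19 listed mast cell markers, 6 were called higher and 7 lower. The higher ones (Fcer1a, Gata2, Cpa3, Ctsg, Adora3 and Poln) include genes that basophils share. Cpa3, the mast cell carboxypeptidase, rose from 1652, 1485 and 1569 CPM to 3446, 3453 and 3854 CPM (change 1.19 (SE 0.17)), and Ctsg (cathepsin G) from 742, 638 and 667 CPM to 977, 1225 and 1362 CPM (change 0.79 (SE 0.10)), while Adora3 and Poln rose by 3.26 and 3.05. Among the lower ones, the tryptase Tpsb2 had 24.7, 61.4 and 14.6 CPM in Pre-BMPs and 0.0231, 0 and 0.0461 CPM in basophils, 1459-fold lower (interval 499 to 7079) (limma adjusted p 3e-05). Mitf, the transcription factor of mast cells, had 5.08, 4.35 and 2.91 CPM and 0, 0.416 and 0 CPM (change -6.71 (SE 1.29), limma adjusted p 0.0023), and Hs6st2, a heparan sulfate sulfotransferase, 1.65, 13.4 and 3.14 CPM and 0, 0.0694 and 0 CPM, 267-fold lower (interval 90.9 to 1295) (limma adjusted p 0.0013). In basophils Cma1 was the highest of these, in library 3. Cma1, Tpsb2 and Hs6st2 were each highest in Pre-BMP library 2. Slc29a1, Kit and Gzmb were the other members called lower, and the gates of the populations differ in c-Kit. The change of Mitf was -8.44 to -5.84 without basophil library 1, 2 or 3. The call of Cpa3 did not hold with quantile normalization (limma adjusted p 0.12, change 0.39). The call of Ctsg did not hold with quantile normalization (limma adjusted p 0.7, change 0.07). The call of Adora3 did not hold without basophil library 1, 2 or 3, without Pre-BMP library 1, 2 or 3 and with reads on listed genes as library size (limma adjusted p 0.06 to 0.11, change 2.94 to 3.33). The call of Poln did not hold without Pre-BMP library 2 (limma adjusted p 0.062, change 2.78). Hs6st2 was 178-fold lower without basophil library 3 and 105-fold lower without Pre-BMP library 2. Tpsb2 was 2916-fold lower without basophil library 3 and 843-fold lower without Pre-BMP library 2.

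For some of these genes the step before is given beside the last, with the caution that both share the Pre-BMP libraries. Of all genes, 9.49% were called between Pre-BMPs and Pro-BMPs and 11.1% differed between the 2 steps. A small p of the difference can come from the last step alone, as for Mef2c. Mef2c changed by 0.0078 at the step before and by -10.76 at the last (limma adjusted p of the difference 8.6e-06). That p is therefore no test of a rise at the step before. Cma1 changed by 7.16 from Pro-BMPs to Pre-BMPs (limma adjusted p 0.0029) and by -9.49 at the last step, a difference of steps of -16.65 (limma adjusted p 0.00035). Tpsb2 was at 0 in all Pro-BMP libraries, and its steps differed (limma adjusted p 3e-05). Gzmb stood at 15.1, 13.2 and 11.6 CPM in Pro-BMPs, and its changes were 3.94 and -3.35 (limma adjusted p of the difference 1.4e-05). Outside the mast cell list, other estimates also rose at the step before and fell at the last. Klf1, the erythroid factor, changed by 2.68 and -3.85 (adjusted p of the difference 0.0056, limma), Cx3cr1 by 2.76 and -3.82 (0.0003), and Ear2 by 1.96 and -4.33 (0.00089). Apoe, the apolipoprotein E gene, changed by 1.86 and -1.63 (8.3e-05), and Lmo4, a LIM domain cofactor, by 2.10 and -1.501 (1.7e-05). For Apoe and Lmo4 the step before was itself called (limma adjusted p 0.00019 and 2.1e-05). Fcer1a differs from these: it changed by 8.72 at the step before, to which its gate belongs, and by 2.64 at the last.

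**Figure D3:**
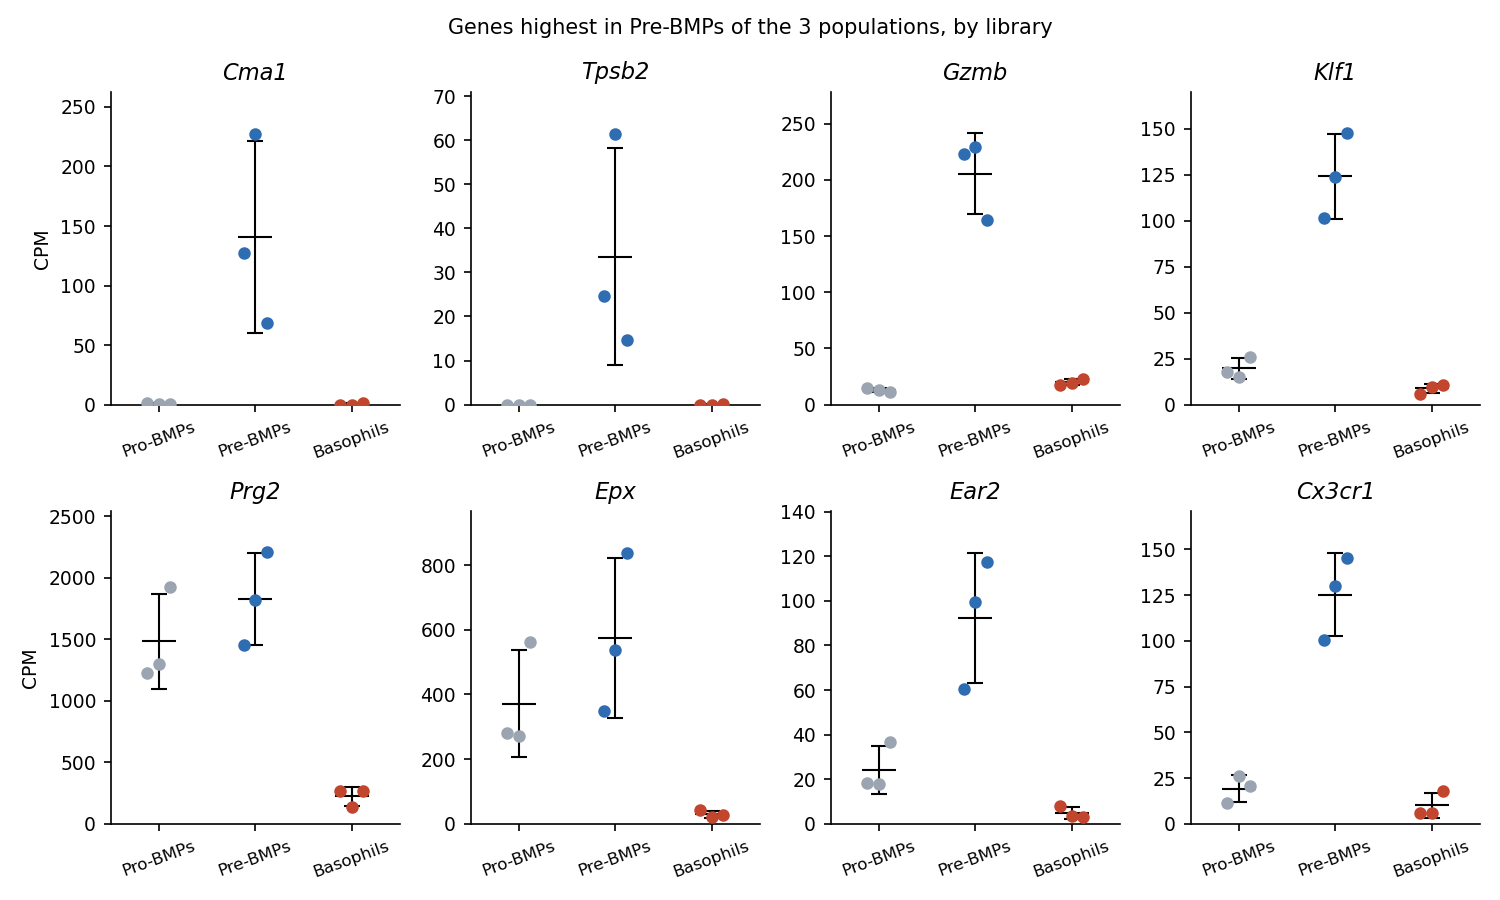
CPM of 8 genes in Pro-BMPs, Pre-BMPs and basophils. Each point is 1 library, the long bar is the mean of 3 libraries and the whiskers are its SD. All 8 have their highest mean in Pre-BMPs among these 3 populations, and Prg2 and Epx are already high in Pro-BMPs.

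Eosinophil genes fell in 9 of 11 cases, with a median of -3.94, and Alox15 was the member called higher. The 1 member not called was Ccr3. Prg2 (major basic protein) had 1456, 1819 and 2206 CPM in Pre-BMPs and 269.6, 134 and 267 CPM in basophils (change -3.08 (SE 0.58), limma adjusted p 0.002), and its relative Prg3 fell by 3.94 on the log2 scale. Epx (eosinophil peroxidase) had 348, 537 and 837 CPM and 41.9, 19.99 and 26.8 CPM (change -4.26 (SE 1.01), limma adjusted p 0.008). The ribonuclease Ear6 had 39.1, 76.0 and 107 CPM and 0 reads in all basophil libraries, at least 1070.1-fold lower (limma adjusted p 4.3e-07). Ear1 had 60.9, 75.9 and 98.7 CPM and 14.4, 2.78 and 8.26 CPM and Ear2 60.3, 99.5 and 117 CPM and 8.05, 3.54 and 2.998 CPM, but these ribonucleases are near copies, so how reads were shared among them is uncertain. All of these were lower in every basophil library, and in Pre-BMPs each was highest in library 3 and lowest in library 1. The summed level of the list was 2299 to 3845 CPM in Pre-BMPs and 1328 to 1723 CPM in basophils, where Alox15 made up most of it. A part of eosinophil progenitors inside the Pre-BMP gate was not tested. The change of Ear1 was -2.82 without basophil library 2.

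Neutrophil granule genes did not move as one: of 24 listed, 6 were called higher and 6 lower. Among genes of primary granules Elane, Prtn3 and Mpo fell, while Ctsg, given above, rose. Elane (neutrophil elastase) had 346, 439 and 349.5 CPM in Pre-BMPs and 10.1, 21.5 and 23.7 CPM in basophils (change -4.44 (SE 0.25), limma adjusted p 3.6e-07), and Prtn3 (proteinase 3) 314, 287 and 251 CPM and 13.3, 13.97 and 27.2 CPM (change -4.04 (SE 0.22), limma adjusted p 3.1e-07). Mpo (myeloperoxidase) fell less, from 4904, 4201 and 4052 CPM to 1841, 2651 and 2595 CPM (change -0.91 (SE 0.13), limma adjusted p 0.00028), and still took 0.264% of reads on listed genes in basophils. Cebpe, a factor of granulocyte maturation, had 11.5, 9.78 and 15.6 CPM and 0.139, 0 and 0.577 CPM (change -6.91 (SE 1.03), limma adjusted p 0.00045). Fcnb was at 0 reads in all basophil libraries, and Hp rose by 1.498. Mpo was also the gene whose read share fell most, followed by Prg2, Apoe, Eef1a1, Gpx1, Igfbp4, Lgals9 and Lmo4. Those 8 took 1.95 to 2.03% of reads on listed genes in Pre-BMP libraries and 0.693 to 0.864% in basophil libraries. Igfbp4, a binding protein of insulin-like growth factors, had 809, 767 and 870.3 CPM and 133, 169 and 164 CPM, and Gpx1 and Lgals9 fell by 0.39 and 0.93 on the log2 scale. The change of Cebpe was -8.18 to -5.35 without basophil library 2 or 3. The call of Ctsg did not hold with quantile normalization (limma adjusted p 0.7, change 0.07).

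Genes of granule transport and release rose in 16 of 38 cases and fell in 5, with a median of 0.50. The lower count was 8 with reads on listed genes as library size, and 3 without Pre-BMP library 1, without Pre-BMP library 2 or in a fit of the 6 libraries alone. Among the rises were the synaptotagmin-like proteins, which tie RAB27 vesicles to the membrane. Sytl3 was close to 0 in Pre-BMPs, at 0, 0.268 and 0.0191 CPM, and at 305, 263 and 282 CPM in basophils (change 12.67 (SE 1.26), limma adjusted p 2.2e-05). Sytl2 had 1.91, 0.0192 and 0 CPM and 54.9, 53.3 and 19.8 CPM (change 8.90 (SE 1.65), limma adjusted p 0.0018), and Sytl1 rose by 3.09 (SE 0.27). Lyst, which controls lysosome and granule size, had 1.06, 9.62 and 7.08 CPM and 196, 172 and 103 CPM (change 5.18 (SE 0.70), limma adjusted p 0.00023). Rab27a and Rab3d, small GTPases of secretory granules, rose by 1.96 (SE 0.19) and 2.03 (SE 0.19), and Stx3 and Unc13d, which act in docking and priming, by 1.96 (SE 0.24) and 1.38 (SE 0.19). Stx2, Vamp5, Vamp7 and Scamp1 were among those that fell. Of these, Stx2 had 98.9, 107 and 128 CPM and 26.1, 35.7 and 42.1 CPM, and Vamp5 116, 154 and 102 CPM and 37.8, 38.9 and 52.1 CPM, with no overlap. The change of Sytl3 was 11.63 to 14.01 without Pre-BMP library 1 or 2, and the change of Sytl2 was 7.36 to 11.19 without Pre-BMP library 1, 2 or 3. The change of Lyst was 4.19 to 5.78 without Pre-BMP library 1 or 2, and the change of Scamp1 was -2.90 to -1.31 without basophil library 1 or 3. The call of Vamp7 did not hold without basophil library 1 or 3, without Pre-BMP library 1 or 2 and in a fit of the 6 libraries alone (limma adjusted p 0.063 to 0.13, change -0.55 to -0.44). The call of Scamp1 did not hold without Pre-BMP library 1 or 2 and in a fit of the 6 libraries alone (limma adjusted p 0.054 to 0.082, change -2.35 to -2.12).

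Lysosomal genes changed modestly, with 10 of 29 higher and 2 lower. The higher count was 5 with reads on listed genes as library size, 4 with quantile normalization, 6 without basophil library 3 and 5 without Pre-BMP library 2. Ctsd (cathepsin D) had 262, 241 and 256 CPM in Pre-BMPs and 1026, 874 and 851 CPM in basophils (change 1.85 (SE 0.09), limma adjusted p 1.7e-07), above in every basophil library, and Neu1 and Grn rose by 1.104 and 0.97. Ctsl (cathepsin L) fell from 19.5, 19.99 and 22.3 CPM to 4.49, 2.82 and 2.12 CPM (change -2.78 (SE 0.30)), and Ctsh by 0.63 on the log2 scale. The call of Ctsh did not hold without basophil library 2 or 3, without Pre-BMP library 2 or 3, in a fit of the 6 libraries alone, with median-ratio scaling and with voom weights (limma adjusted p 0.058 to 0.14, change -0.66 to -0.48).

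Most integrin chains rose, and 2 fell. Of 17 listed chains, 11 were called higher and 2 lower, with a median of 2.11. Itgb2, the β2 chain of leukocyte integrins, had 70.5, 53.5 and 61.1 CPM in Pre-BMPs and 1212, 1068 and 1155 CPM in basophils (change 4.22 (SE 0.17), limma adjusted p 6e-08). Its partner Itgal, with which it forms LFA-1, had 149.5, 119 and 180.1 CPM and 674, 591 and 651 CPM (change 2.11 (SE 0.29), limma adjusted p 0.00024). Itgb7 had 212, 180.2 and 206 CPM and 1246, 1126 and 1053 CPM (change 2.52 (SE 0.26), limma adjusted p 2.8e-05), while Itga4, a chain it pairs with, fell from 222, 230.1 and 336 CPM to 23.2, 37.7 and 29.0 CPM (change -3.13 (SE 0.22), limma adjusted p 1.8e-06). Itgae, the other α partner of β7, rose by 5.58, but to a mean of 8.95 CPM. Itga1, which binds collagen, had 0, 0 and 3.10 CPM and 141, 96.4 and 56.3 CPM (change 10.41 (SE 2.34), limma adjusted p 0.0058). The 2 chains of the platelet integrin also rose, Itgb3 from 3.58, 2.34 and 2.70 CPM to 103, 117 and 46.8 CPM and Itga2b, CD41, from 465, 325 and 426 CPM to 1588, 1189 and 1245 CPM. Of 9 listed platelet and red cell markers, 0 were called higher, also at an unadjusted limma p under 0.05 and with voom weights. Pf4 was at 0, Gp9 fell, and the summed level of the list was 45.1 to 61.1 CPM in Pre-BMPs and 20.8 to 32.9 CPM in basophils. Itgb5 rose by 5.20, Itga5, a fibronectin receptor chain, fell by 0.96 on the log2 scale, and Itga9, at 0 in Pre-BMPs, was not called. The change of Itgae was 3.48 to 6.71 without Pre-BMP library 1, 2 or 3, and the change of Itga1 was 9.01 to 13.18 without Pre-BMP library 1, 2 or 3. The change of Itgb5 was 2.39 to 7.06 without Pre-BMP library 1, 2 or 3, and the change of Gp9 was -9.78 to -6.31 without basophil library 1, 2 or 3. The call of Itgae did not hold in a fit of the 6 libraries alone (limma adjusted p 0.055, change 5.58). The call of Itgb5 did not hold without basophil library 1, 2 or 3, in a fit of the 6 libraries alone and with reads on listed genes as library size (limma adjusted p 0.053 to 0.14, change 4.87 to 5.55). The call of Itga5 did not hold without basophil library 3 and without Pre-BMP library 1 (limma adjusted p 0.064 to 0.066, change -0.87 to -0.75).

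Of 22 further adhesion genes, 11 were called higher and 5 lower. Cdh1, given above, had the largest rise among those called. Cd53, a tetraspanin of blood cells, had 337, 268 and 371 CPM in Pre-BMPs and 1544, 1347 and 1501 CPM in basophils (change 2.18 (SE 0.13), limma adjusted p 4.9e-07). Selplg, the ligand of selectins, acts in rolling on vessel walls. It had 316, 332 and 363 CPM in Pre-BMPs and 1097, 937 and 929 CPM in basophils, higher in every basophil library (change 1.55 (SE 0.11), limma adjusted p 2.3e-06). Other tetraspanins split, since Cd9 and Cd82 rose by 1.90 and 1.98 while Cd81 and Tspan32 fell by 0.99 and 0.82 on the log2 scale. Tspan33, a tetraspanin of erythroid and B cells, had 1.91, 4.08 and 4.04 CPM and 0 reads in all basophil libraries, at least 48.2-fold lower (limma adjusted p 0.011). Vcam1 and Ctnnd1 (p120 catenin, which binds E-cadherin) fell by 3.93 and 1.97 on the log2 scale, from means of 3.38 and 3.52 CPM, with libraries of Vcam1 that overlap. The change of Vcam1 was -5.74 without basophil library 3. The call of Vcam1 did not hold without basophil library 1 or 2, without Pre-BMP library 1 or 3, in a fit of the 6 libraries alone and with voom weights (limma adjusted p 0.06 to 0.11, change -3.99 to -3.03). The call of Ctnnd1 did not hold without Pre-BMP library 2 (limma adjusted p 0.06, change -1.70).

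Transcription factors of blood lineages rose in 35 of 82 cases and fell in 16, with a median of 0.51. Nfil3, a factor that IL-3 induces, had 6.69, 11.0 and 11.2 CPM in Pre-BMPs and 244, 178 and 198 CPM in basophils (change 4.45 (SE 0.36), limma adjusted p 5.6e-06). Ets1 had 95.6, 62.0 and 69.5 CPM and 1069.7, 994 and 1029.9 CPM (change 3.79 (SE 0.35), limma adjusted p 1.4e-05), and Klf6 63.9, 72.7 and 79.98 CPM and 404, 332 and 254 CPM (change 2.17 (SE 0.28)). The factors best known from basophil formation rose by less: Gata2 from 904, 597 and 809.7 CPM to 2279, 1859.8 and 2173 CPM (change 1.47 (SE 0.26), limma adjusted p 0.0015), and Cebpa from 47.9, 37.3 and 41.0 CPM to 165, 118 and 133 CPM (change 1.71 (SE 0.22), limma adjusted p 0.00015). Gata1, which is shared with mast, eosinophil and erythroid cells, had 212, 213 and 191 CPM and 120.0, 152 and 179 CPM. It was lower in every basophil library but not called (limma adjusted p 0.73). Cebpb and Spi1 (PU.1) rose by 1.85 (SE 0.16) and 1.36 (SE 0.12). Foxo1, tied to rest and survival, had 11.6, 6.90 and 7.94 CPM and 98.1, 93.3 and 67.2 CPM (change 3.31 (SE 0.72)), and Klf2, tied to lymphocyte rest, rose by 7.40 from a mean of 0.115 CPM to 5.76 CPM. The change of Klf2 was 9.12 without Pre-BMP library 3. The call of Klf2 did not hold without basophil library 1 or 2 and without Pre-BMP library 1 or 2 (limma adjusted p 0.053 to 0.077, change 6.52 to 7.50).

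Several of the factors that fell are known from stem and progenitor cells. Myb had 459, 505 and 491 CPM in Pre-BMPs and 79.4, 89.9 and 111 CPM in basophils (change -2.39 (SE 0.11), limma adjusted p 1.6e-07). Sox4 had 228, 225 and 282 CPM and 19.4, 22.3 and 24.4 CPM (change -3.47 (SE 0.13), limma adjusted p 6e-08), Meis1 63.8, 87.6 and 86.9 CPM and 19.0, 21.2 and 24.8 CPM (change -1.87 (SE 0.29)) and Hoxa9 24.1, 23.04 and 32.2 CPM and 1.87, 0.509 and 3.74 CPM (change -4.08 (SE 0.55)). Mef2c, a factor of lymphoid and myeloid progenitors, went from 25.4, 36.5 and 26.2 CPM to 1 read in all basophil libraries, 3822-fold lower (interval 686 to 150997) (limma adjusted p 6e-08). Ahr, the aryl hydrocarbon receptor, had 2.89, 3.85 and 2.43 CPM and 0 reads in all basophil libraries, at least 44.1-fold lower (limma adjusted p 3.2e-05). Klf1 had 101, 124 and 147 CPM and 5.94, 9.51 and 10.9 CPM (change -3.85 (SE 0.71), limma adjusted p 0.0017), and Mycn 1.71, 3.51 and 1.63 CPM and 1 read in all basophil libraries, 298-fold lower (interval 53.1 to 11784). Other lower calls were Hoxa7, Irf8, Zfpm1, Zbtb16, Tcf4, Zeb2 and Stat5a (changes -3.36, -4.20, -2.51, -1.45, -1.33, -1.14 and -1.01). Nr4a1 was at 0 in basophils and not called. The change of Hoxa9 was -4.72 to -3.30 without basophil library 2 or 3, and the change of Hoxa7 was -4.10 to -2.01 without basophil library 1, 2 or 3. The change of Irf8 was -6.01 without basophil library 1. The call of Hoxa7 did not hold in a fit of the 6 libraries alone (limma adjusted p 0.066, change -3.36). The call of Irf8 did not hold without basophil library 2 or 3, without Pre-BMP library 1, 2 or 3, in a fit of the 6 libraries alone and with voom weights (limma adjusted p 0.058 to 0.15, change -4.49 to -2.11). Mef2c was 2546-fold lower without basophil library 3. Mycn was 198-fold lower without basophil library 3.

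Of 25 stem and multipotent progenitor genes, 14 were called lower and 3 higher (Tespa1, Cd48 and Ifitm1, by 1.66, 0.55 and 0.45), with a median of -1.87. Kit and Cd34 are among the 14, and Pre-BMPs were sorted with both proteins while basophils were sorted without c-Kit. Mecom, a stem cell factor, fell by 5.82 on the log2 scale from a mean of 2.58 CPM, and Bcat1 had 0 reads in Pre-BMPs. Of 26 megakaryocyte and erythroid genes, 12 were called lower and 3 higher (Itgb3, Itga2b and Nfe2, the last by 0.40), with a median of -2.22. Trib2, a pseudokinase, had 32.5, 44.5 and 58.9 CPM in Pre-BMPs and 3 reads in all basophil libraries, 1970.2-fold lower (interval 674 to 9556) (limma adjusted p 0.0018). Car1 (carbonic anhydrase 1) had 35.6, 81.7 and 72.6 CPM and 3.01, 0.74 and 0 CPM (change -7.65 (SE 1.503), limma adjusted p 0.0026). Tfrc, the transferrin receptor, had 56.6, 40.6 and 57.1 CPM and 9.41, 16.4 and 15.1 CPM (change -1.94 (SE 0.24), limma adjusted p 0.00013), lower in every basophil library. The globin genes Hbb-bt, Hba-a1 and Hba-a2 were not called, with means of 1.96, 3.61 and 1.12 CPM in Pre-BMPs, and Alas2 was called lower, with 0 reads in all basophil libraries and at least 7.88-fold. The change of Mecom was -6.88 without basophil library 3 and -7.27 without Pre-BMP library 2, and the change of Car1 was -9.32 to -5.30 without basophil library 1, 2 or 3. The call of Cd48 did not hold with quantile normalization and with reads on listed genes as library size (limma adjusted p 0.058 to 0.077, change 0.21 to 0.23). The call of Ifitm1 did not hold without basophil library 1, 2 or 3, without Pre-BMP library 1, 2 or 3, with quantile normalization and with reads on listed genes as library size (limma adjusted p 0.071 to 0.56, change -0.25 to 0.49). The call of Mecom did not hold without basophil library 1 or 2, without Pre-BMP library 1 or 3, with 5 reads added, with quantile normalization and with voom weights (limma adjusted p 0.094 to 0.22, change -5.80 to -3.48). The call of Nfe2 did not hold without basophil library 1 or 3, without Pre-BMP library 2, with quantile normalization and with reads on listed genes as library size (limma adjusted p 0.053 to 0.68, change -0.07 to 0.36). The call of Alas2 did not hold without basophil library 1, 2 or 3, without Pre-BMP library 1 or 2, with 5 reads added, with quantile normalization and with voom weights (limma adjusted p 0.068 to 0.11).

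Among all genes with non-overlapping libraries and at least 10 CPM in the higher population, the largest rises were those of C5ar1, Gm35147, Alox8, Skap1, Fam110c, Sytl3, Cd226, Il7r, C3ar1 and D430036J16Rik. Of these, Gm35147 (a long non-coding RNA at chr7:132462012-132466661, GRCm38), Fam110c, Cd226 and D430036J16Rik had 0 reads in all Pre-BMP libraries. They and C5ar1 had 0 reads in all DN-GMP and Pro-BMP libraries too, so their place among the genes listed rests on the basophil libraries alone. Cd226, an activating receptor of lymphocytes and platelets, had 69.9, 68.0 and 48.8 CPM in basophils, at least 1061-fold higher, and Fam110c 108, 77.0 and 58.2 CPM, at least 1382-fold higher. Gm35147 had 173, 99.9 and 88.1 CPM, at least 2050.3-fold higher, and D430036J16Rik 50.1, 48.4 and 48.6 CPM, at least 836-fold higher. Skap1, an adaptor best known from T cell adhesion, had 1 read in all Pre-BMP libraries and 169.5, 105 and 98.6 CPM in basophils, 19088-fold higher (interval 3426 to 754003) (limma adjusted p 8.9e-05). Whether strand was used in counting is not known here, so a gene and an antisense partner may share reads, which bears on the non-coding genes most. Among the largest falls were those of Ear6, Mfsd2b, Trib2, Mef2c, Clstn3, Angptl2, Maged1, Slc7a4 and Ppic. Mfsd2b, a sphingosine 1-phosphate exporter of red cells and platelets, had 74.9, 174 and 144 CPM and 0, 0 and 0.138 CPM (change -12.15 (SE 0.88), limma adjusted p 2.2e-06). Slc7a4 had 22.4, 17.8 and 24.7 CPM and 2 reads in all basophil libraries, 1403-fold lower (interval 388 to 11594). Clstn3, Angptl2, Maged1 and Ppic had 0 reads in all basophil libraries and were at least 258-fold, 229.9-fold, 234-fold and 202-fold lower. The change of Mfsd2b was -13.38 to -11.53 without basophil library 1, 2 or 3. Skap1 was 12596-fold higher without Pre-BMP library 3. Slc7a4 was 935-fold lower without basophil library 3.

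**Figure D4:**
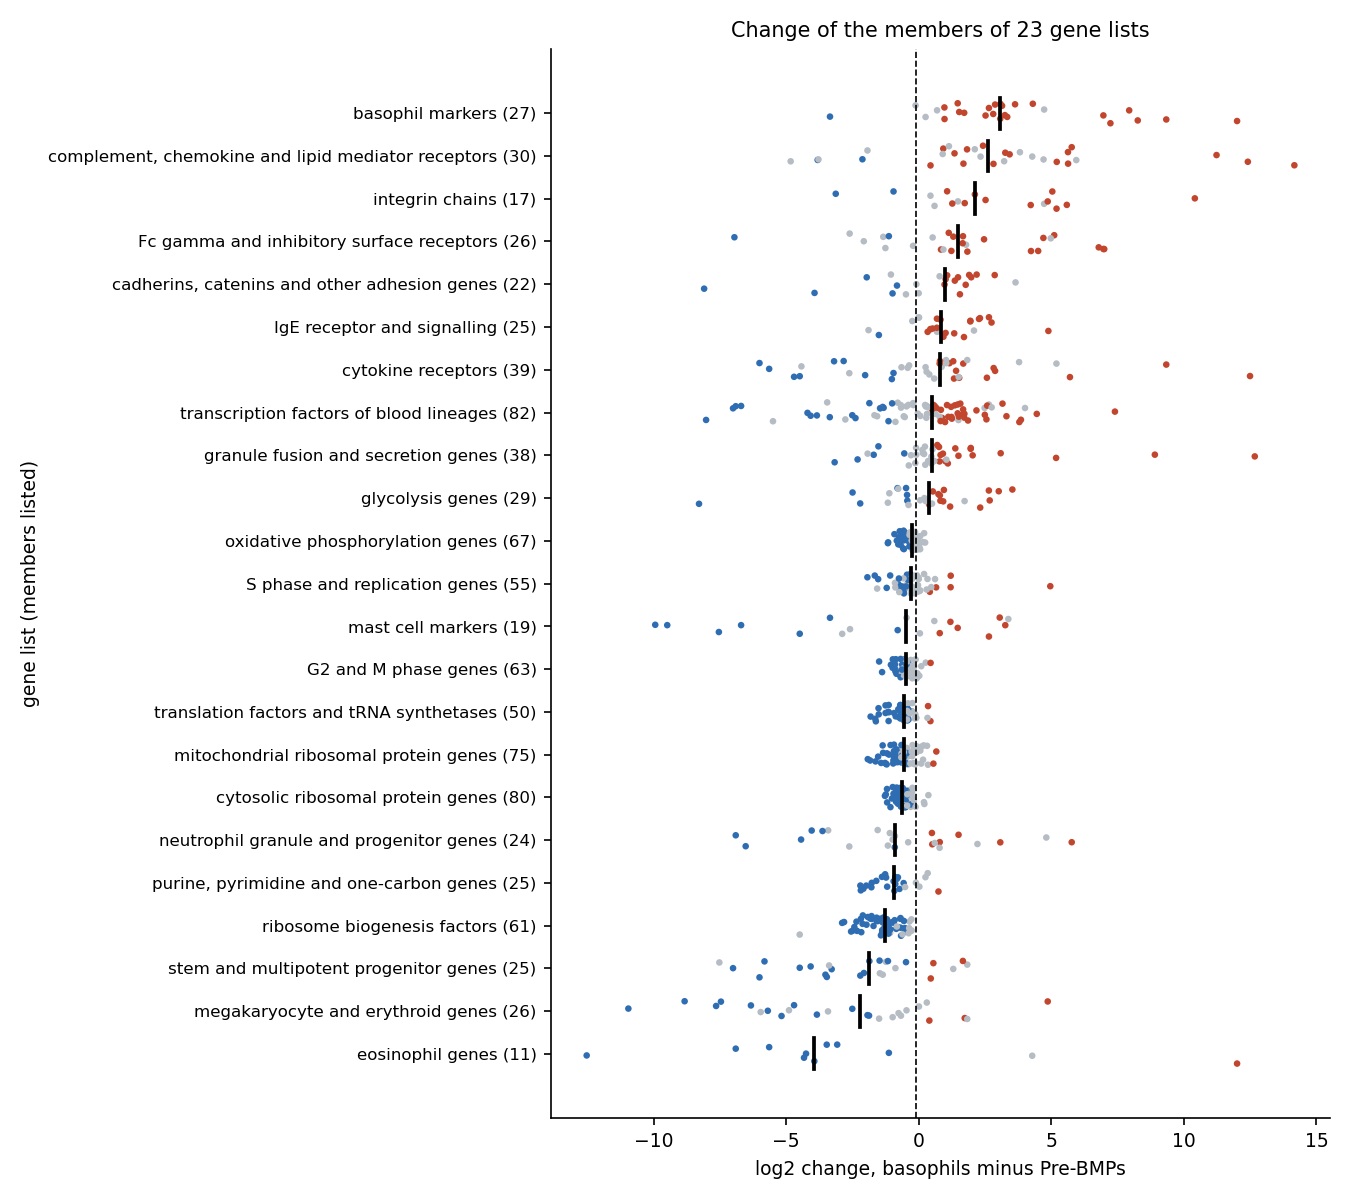
Log2 change (basophils minus Pre-BMPs) of each member of 23 gene lists, ordered by the list's median (black bar), with the number of members listed in brackets. Red is called higher, blue called lower and grey not called, and the dashed line is the median of all genes (-0.10). Basophil markers lie at the top with a median of 3.07, and eosinophil genes at the bottom with -3.94.

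Genes of ribosome assembly, ribosomal proteins and translation were lower in basophils in most cases. Of 61 ribosome biogenesis factors, 51 were called lower and 0 higher, with a median of -1.26, against 16.5% lower over all genes. Wdr12, a factor of the large subunit, had 175, 184 and 168 CPM in Pre-BMPs and 22.9, 22.8 and 29.3 CPM in basophils (change -2.82 (SE 0.13), limma adjusted p 1.3e-07), and Noc3l and Rrp1b fell by 2.89 and 2.56 on the log2 scale. The nucleolar proteins Ncl and Npm1 had 591, 628 and 543 CPM and 433, 485 and 417 CPM in Pre-BMPs, and 241, 256 and 245 CPM and 146, 142 and 169 CPM in basophils, lower in every basophil library (changes -1.25 (SE 0.09) and -1.55 (SE 0.11)). Fbl, which methylates ribosomal RNA, and Polr1b, of RNA polymerase I, fell by 1.45 and 2.43 on the log2 scale. Of 80 cytosolic ribosomal protein genes, 59 were called lower and 0 higher, with a median of -0.65. Rpl3 had 643, 616 and 623 CPM and 249, 260.2 and 286 CPM (change -1.24 (SE 0.07), limma adjusted p 5.3e-07), Rps2 483, 495 and 433 CPM and 175, 178 and 232 CPM (change -1.28 (SE 0.11)), and Rpl12 fell by 1.20 on the log2 scale. Many of these genes have processed pseudogenes that can share reads. At an unadjusted limma p under 0.05, 0 ribosome biogenesis factors and 1 ribosomal protein gene were higher, and with voom weights 0 of either list were called higher. The change of Noc3l was -3.71 to -1.84 without basophil library 2 or 3. The call of Noc3l did not hold without Pre-BMP library 2 and in a fit of the 6 libraries alone (limma adjusted p 0.063 to 0.068, change -2.89 to -2.54).

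Of 50 translation factors and tRNA synthetases, 34 were called lower and 2 higher, with a median of -0.55. Eef1g, a subunit of elongation factor 1, had 255, 238 and 199.98 CPM in Pre-BMPs and 71.8, 91.1 and 79.9 CPM in basophils (change -1.51 (SE 0.14), limma adjusted p 1.4e-05). Eif4e, which binds the mRNA cap, had 173, 203 and 181 CPM and 73.7, 89.9 and 91.4 CPM (change -1.13 (SE 0.12), limma adjusted p 3.7e-05). Iars, Cars and Eif2b3 fell by 1.64, 1.62 and 1.82 on the log2 scale, while Eif1 and Eif5, both of start codon selection, rose by 0.44 and 0.35. Of 25 genes of purine, pyrimidine and one-carbon metabolism, 19 were called lower and 1 higher, with a median of -0.92. Psat1 and Phgdh, of serine synthesis, had 247, 246 and 210.0 CPM and 191, 209.7 and 166 CPM in Pre-BMPs, and 39.2, 58.2 and 59.2 CPM and 52.1, 43.0 and 38.4 CPM in basophils. Both were lower in every basophil library than in any Pre-BMP library (changes -2.19 (SE 0.17) and -2.09 (SE 0.15)). Ppat and Pfas, of purine synthesis, and Mthfd1 fell by 1.98, 2.21 and 1.78 on the log2 scale, and Mthfd2, the mitochondrial counterpart of the last, was called higher (change 0.74 (SE 0.24), limma adjusted p 0.038). The change of Pfas was -3.03 to -1.52 without basophil library 1 or 3. The call of Eif1 did not hold without basophil library 3, without Pre-BMP library 3, with quantile normalization and with reads on listed genes as library size (limma adjusted p 0.055 to 0.95, change 0.01 to 0.39). The call of Eif5 did not hold with quantile normalization and with reads on listed genes as library size (limma adjusted p 0.83 to 0.93, change 0.01 to 0.03). The call of Pfas did not hold in a fit of the 6 libraries alone (limma adjusted p 0.067, change -2.21). The call of Mthfd2 did not hold without basophil library 1 or 2, without Pre-BMP library 2 or 3, in a fit of the 6 libraries alone and with reads on listed genes as library size (limma adjusted p 0.056 to 0.2, change 0.42 to 0.81).

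Nuclear genes of mitochondrial proteins were mostly lower or not called. Of 75 mitochondrial ribosomal protein genes, 40 were called lower and 2 higher, with a median of -0.57. Mrps6 had 12.7, 20.2 and 14.6 CPM in Pre-BMPs and 4.51, 4.56 and 3.30 CPM in basophils (change -1.93 (SE 0.26)), Mrps28 and Mrps5 were also lower (changes -1.84 and -1.63), and Mrps24 and Mrps35 rose by 0.66 and 0.55. Of 67 genes of oxidative phosphorylation, 26 were called lower and 0 higher, with a median of -0.24. Atp5g1, a subunit of ATP synthase, had 188, 201 and 126 CPM and 61.3, 79.3 and 86.0 CPM (change -1.17 (SE 0.19), limma adjusted p 0.00082), and Uqcrq and Ndufa12 changed by -0.92 and -1.16. At an unadjusted limma p under 0.05, and with voom weights, 0 genes of oxidative phosphorylation were higher. With reads on listed genes as library size 45 were called lower, and 24 mitochondrial ribosomal protein genes were lower without Pre-BMP library 2. The call of Mrps24 did not hold with reads on listed genes as library size (limma adjusted p 0.12, change 0.34). The call of Mrps35 did not hold without basophil library 3, without Pre-BMP library 3, with quantile normalization and with reads on listed genes as library size (limma adjusted p 0.054 to 0.3, change 0.23 to 0.53). The call of Uqcrq did not hold without basophil library 1, without Pre-BMP library 1 or 2 and in a fit of the 6 libraries alone (limma adjusted p 0.051 to 0.066, change -0.92 to -0.71).

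Glycolysis genes were mixed, with 13 of 29 called higher and 7 lower and a median of 0.39, which was 0.07 with reads on listed genes as library size. Hk3, a hexokinase of myeloid cells, had 55.7, 55.2 and 58.0 CPM in Pre-BMPs and 729, 637 and 590.2 CPM in basophils (change 3.53 (SE 0.12), limma adjusted p 4.6e-08). Pfkp, a phosphofructokinase, had 101, 85.9 and 73.6 CPM and 749.9, 745 and 603 CPM (change 3.01 (SE 0.12), limma adjusted p 6e-08), and the glucose transporter Slc2a3 44.1, 45.1 and 74.8 CPM and 384, 330.4 and 305 CPM (change 2.67 (SE 0.55)). All 3 were higher in every basophil library, and Hk2 rose by 2.64 (SE 0.17). Isoforms of the same step moved apart: Hk1 fell by 0.43, Pfkl by 0.80, and Ldhb, a lactate dehydrogenase chain, went from 16.8, 15.8 and 13.8 CPM to 0, 0.879 and 0 CPM (change -8.29 (SE 1.27), limma adjusted p 0.00054) while Ldha rose by 0.74 (SE 0.07). The lactate transporter Slc16a1 and the kinase Pdk1 fell by 2.21 and 2.50 on the log2 scale, and Tkt and Tpi1 by 0.44 and 0.48. The change of Ldhb was -10.38 to -7.25 without basophil library 1, 2 or 3, and the change of Pdk1 was -3.15 to -1.61 without basophil library 1 or 3. The call of Hk1 did not hold without basophil library 1, 2 or 3, without Pre-BMP library 1 or 3 and with median-ratio scaling (limma adjusted p 0.062 to 0.17, change -0.45 to -0.34). The call of Ldha did not hold with quantile normalization (limma adjusted p 0.34, change 0.09). The call of Pdk1 did not hold in a fit of the 6 libraries alone (limma adjusted p 0.066, change -2.50).

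Proliferation genes were still present in basophils. Of 63 genes of G2 and mitosis, 26 were called lower and 1 higher, with a median of -0.47, and of 55 of S phase and replication, 15 were lower and 5 higher, with a median of -0.30. Mki67, the Ki-67 gene, had 233, 313 and 285 CPM in Pre-BMPs and 272, 342 and 385 CPM in basophils. Its libraries overlapped and it was not called (change 0.26 (SE 0.19), limma adjusted p 0.32). Cdk1, the mitotic kinase, had 184, 218 and 178 CPM and 160.1, 151 and 229 CPM (change -0.12 (SE 0.15), limma adjusted p 0.58), and Top2a, a topoisomerase of dividing cells, 519.8, 611 and 642 CPM and 405, 532 and 498 CPM (change -0.31 (SE 0.12), limma adjusted p 0.08). For all 3 the basophil and Pre-BMP libraries overlapped. Other mitotic genes fell, such as Ccnb1 (cyclin B1), from 219.7, 288 and 263 CPM to 109, 117 and 169 CPM (change -0.99 (SE 0.16), limma adjusted p 0.0007), and Anln, Cenph and Ttk, by 1.498, 1.39 and 1.05 on the log2 scale. Hmgb2, a chromatin protein, was the member called higher (change 0.44 (SE 0.09), limma adjusted p 0.0038). With reads on listed genes as library size 54 of 63 were called lower, and with quantile normalization 43. Cdk1 passed the threshold with reads on listed genes as library size (limma adjusted p 0.041). Top2a passed the threshold with quantile normalization, with reads on listed genes as library size, without basophil library 2 and without Pre-BMP library 1 (limma adjusted p 0.00083 to 0.0497). The call of Ttk did not hold without basophil library 1 and without Pre-BMP library 1 or 2 (limma adjusted p 0.054 to 0.07, change -1.03 to -0.79). The call of Hmgb2 did not hold with quantile normalization and with reads on listed genes as library size (limma adjusted p 0.37 to 0.53, change -0.09 to 0.12).

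In the S phase list the helicase genes differed among themselves. Mcm3 had 357, 339 and 275 CPM in Pre-BMPs and 295, 346 and 325 CPM in basophils, overlapping, and Pcna, the sliding clamp, 171, 146 and 143 CPM and 173, 186 and 167 CPM. Neither was called. Mcm7 had 313, 283 and 234 CPM and 149, 177 and 169.9 CPM, lower in all basophil libraries (change -0.74 (SE 0.11), limma adjusted p 0.00035), and Gins1, Orc1 and Mcm10 fell by 1.94, 1.66 and 1.53 on the log2 scale. Rrm2, of deoxynucleotide synthesis, had 147, 125 and 133 CPM and 256, 368 and 316 CPM and rose (change 1.20 (SE 0.13), limma adjusted p 3.4e-05). E2f2 had 3.33, 1.94 and 4.25 CPM and 96.7, 89.2 and 96.6 CPM (change 4.96 (SE 0.45), limma adjusted p 1.1e-05), and Ccne2, Slbp and Rfc2 rose by 1.20, 0.65 and 0.41. With reads on listed genes as library size 28 of 55 were called lower and 4 higher, and 9 were lower without Pre-BMP library 1 or in a fit of the 6 libraries alone. The change of Mcm10 was -0.88 without basophil library 3. The call of Orc1 did not hold without basophil library 1 or 3, without Pre-BMP library 1 or 3, in a fit of the 6 libraries alone, with quantile normalization and with voom weights (limma adjusted p 0.052 to 0.15, change -1.73 to -1.11). The call of Mcm10 did not hold without Pre-BMP library 1 or 3 and in a fit of the 6 libraries alone (limma adjusted p 0.074 to 0.081, change -1.53 to -1.44). The call of Rfc2 did not hold with quantile normalization and with reads on listed genes as library size (limma adjusted p 0.4 to 0.8, change -0.03 to 0.09).

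The G1 kinases and Myc fell, while several genes that hold back the cycle rose. Cdk4 and Cdk6, the kinases of G1, had 447, 461 and 406 CPM and 438, 508 and 527 CPM in Pre-BMPs, and 167, 186 and 232 CPM and 116, 134 and 197 CPM in basophils, lower in every basophil library (changes -1.18 (SE 0.10) and -1.75 (SE 0.17), limma adjusted p 9.8e-06 and 1.8e-05). Myc had 258, 213 and 234 CPM and 105, 89.8 and 79.7 CPM (change -1.37 (SE 0.13), limma adjusted p 1.8e-05), and Mxd1, which competes with MYC for MAX, 35.6, 32.9 and 28.4 CPM and 566, 427 and 415 CPM (change 3.85 (SE 0.33), limma adjusted p 8.4e-06). The pocket protein gene Rbl2 had 85.7, 87.9 and 92.2 CPM and 293, 298 and 246 CPM (change 1.65 (SE 0.20)), and the kinase inhibitors Cdkn2d and Cdkn1b rose by 1.43 (SE 0.21) and 1.04 (SE 0.21). Btg1, which restrains proliferation, had 40.4, 44.0 and 45.3 CPM and 279, 213 and 189 CPM (change 2.37 (SE 0.21)), and Txnip rose by 2.27 (SE 0.18). Ccnd3 (cyclin D3) had 164, 189 and 177 CPM and 597, 601 and 572 CPM (change 1.74 (SE 0.10), limma adjusted p 3.6e-07), while Ccnd1 and the non-coding Gas5 fell by 4.07 and 1.47 on the log2 scale, with libraries of Ccnd1 that overlap. In all, 11 of 27 listed genes were called higher and 4 lower, and 7 were higher without Pre-BMP library 2. The change of Ccnd1 was -4.91 without basophil library 2 and -5.65 without Pre-BMP library 3. The call of Ccnd1 did not hold without basophil library 1 or 3, without Pre-BMP library 1 or 2, in a fit of the 6 libraries alone, with 5 reads added, with quantile normalization and with voom weights (limma adjusted p 0.079 to 0.28, change -4.22 to -2.58).

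**Figure D5:**
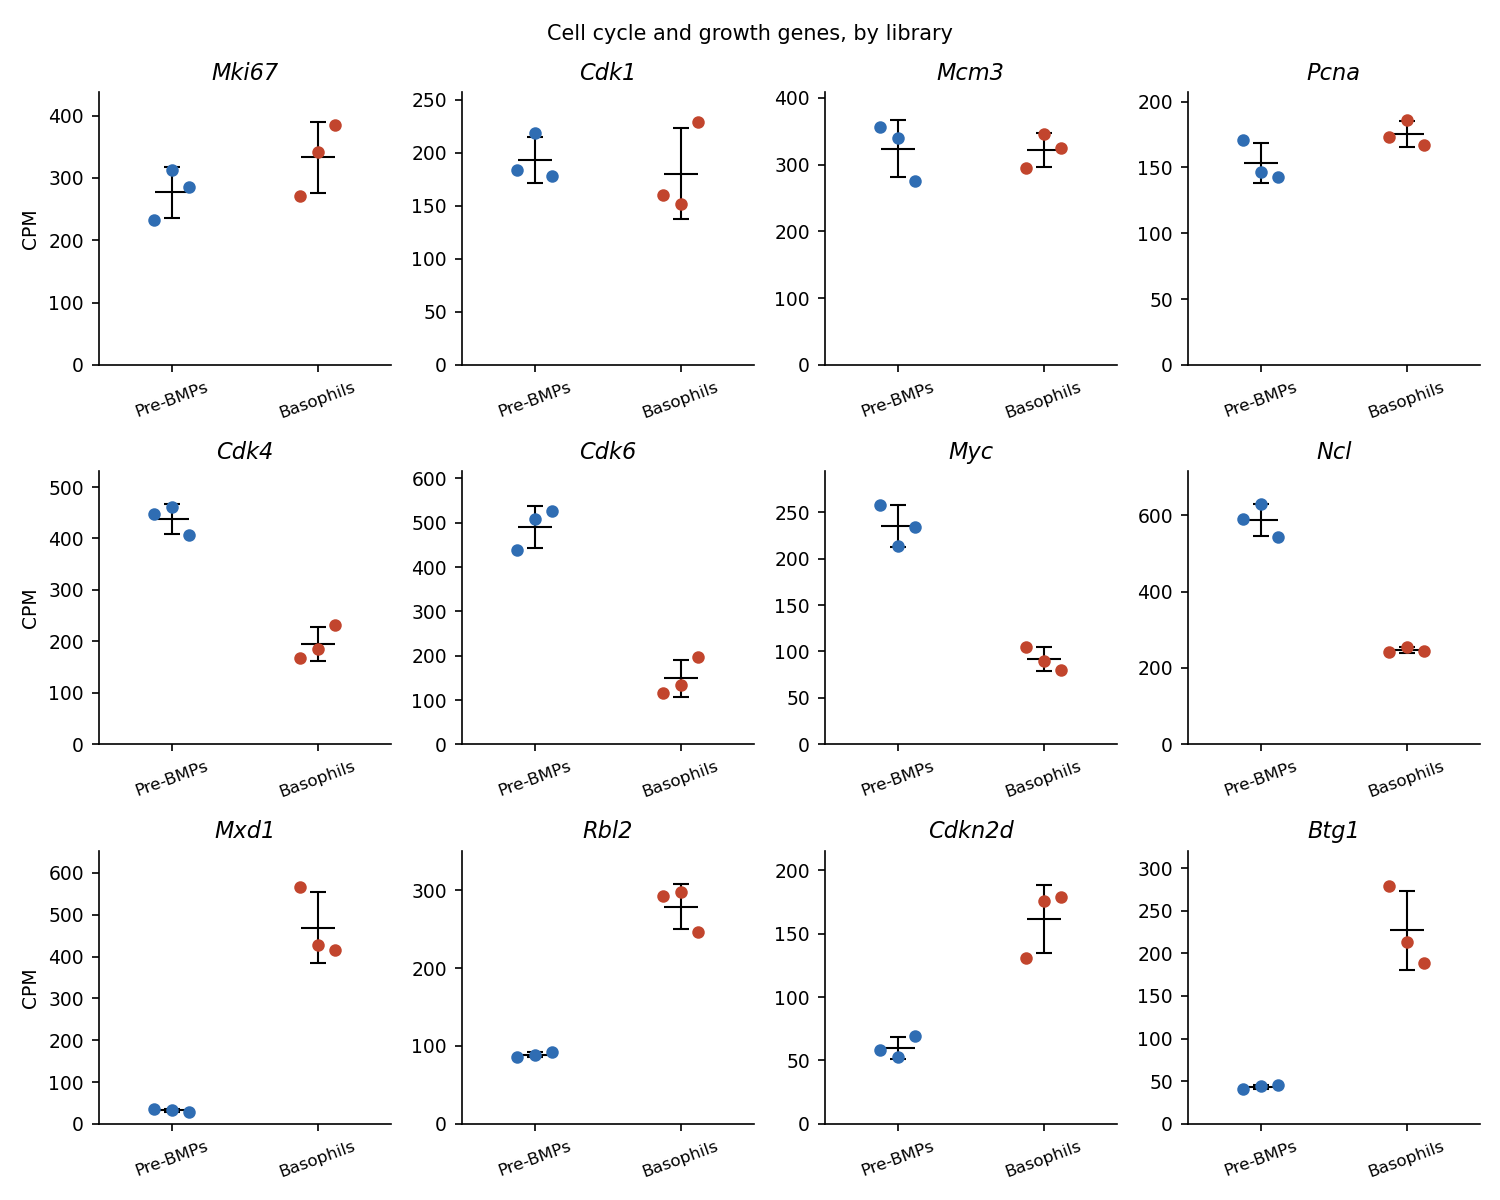
CPM of 12 cell cycle and growth genes in Pre-BMPs and basophils. Each point is 1 library, the long bar is the mean of 3 libraries and the whiskers are its SD. In the top row (Mki67, Cdk1, Mcm3 and Pcna) the populations overlap, in the middle row (Cdk4, Cdk6, Myc and Ncl) basophils lie below, and in the bottom row (Mxd1, Rbl2, Cdkn2d and Btg1) above.

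Of 22 genes of the Bcl2 family and cell death, 9 were called higher and 0 lower, with a median of 0.76, and 0 were lower at an unadjusted limma p under 0.05 or with voom weights. The higher count was 4 with reads on listed genes as library size, and 5 without any one of basophil libraries 1 and 3 and Pre-BMP libraries 1 and 2. Mcl1, a survival factor of granulocytes, had 166, 139 and 147 CPM in Pre-BMPs and 288, 236 and 255 CPM in basophils (change 0.78 (SE 0.13), limma adjusted p 0.00072). Genes that promote death rose too. Bbc3 (PUMA) had 1.79, 1.02 and 3.41 CPM and 32.4, 24.1 and 28.3 CPM (change 3.93 (SE 0.53), limma adjusted p 0.00023), and Bmf and Fas rose by 6.02 and 2.57 to means of 5.37 and 10.5 CPM. Of 28 sterol and fatty acid synthesis genes, 3 were called higher (10.7%) and 4 lower (14.3%), near the 13.9% and 16.5% of all genes. The lower count was 9 with reads on listed genes as library size and 7 without basophil library 2. Scd2, a fatty acid desaturase, fell from 254, 245 and 276 CPM to 43.0, 39.8 and 57.1 CPM (change -2.48 (SE 0.22), limma adjusted p 9.7e-06) and Sqle and Insig1 fell by 1.67 and 1.43 on the log2 scale, while Sc5d, of cholesterol synthesis, rose from 22.1, 14.1 and 22.5 CPM to 83.6, 92.2 and 60.3 CPM (change 2.02 (SE 0.23)) and Ebp by 0.72. The change of Bmf was 7.84 without Pre-BMP library 3. The call of Bmf did not hold without basophil library 1, 2 or 3, without Pre-BMP library 1 or 2, with reads on listed genes as library size and with voom weights (limma adjusted p 0.053 to 0.16, change 4.73 to 6.92). The call of Fas did not hold without basophil library 1 or 3 and without Pre-BMP library 2 or 3 (limma adjusted p 0.054 to 0.1, change 2.03 to 2.64). The call of Ebp did not hold with reads on listed genes as library size (limma adjusted p 0.073, change 0.40).

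Markers of other cells that either gate could hold were checked as whole lists. Of 18 NK and innate lymphoid markers, 5 are listed, with 2 called lower (Gzmb and Nkg7, the latter by 0.44 on the log2 scale). Their summed level was 775 to 906 CPM in Pre-BMPs and 442 to 558 CPM in basophils, and Klrk1 had 0 reads in Pre-BMPs. The defining Ncr1, Klrb1c and Eomes are not among the genes listed. T cell markers, 3 of 12 listed, summed to 3.47 to 8.92 CPM and 9.67 to 15.5 CPM. B and plasma cell markers, 5 of 12 listed, summed to 33.2 to 48.9 CPM and 64.2 to 77.8 CPM. Cd79b rose by 1.04, Igll1 and Sdc1 were at 0 in basophils, and Ms4a1 and Pax5 are not listed. Monocyte and dendritic cell markers, 14 of 18 listed, summed to 357 to 368 CPM and 504 to 660 CPM. Ccr2, given above, made up a large part of that sum in basophils and little of it in Pre-BMPs. In this list Ccr2, F13a1 and Ms4a6c rose, the last 2 by 3.02 and 2.21, and Lyz2, Cx3cr1, Irf8, Flt3 and Ly6c2 fell, where voom weights left 2 of these 5. Mpeg1 was at 0 in basophils and Csf1r at a mean of 4.74 CPM. Stromal and endothelial markers, 5 of 14 listed, held Pecam1 and Acta2 among the rises (1.48 and 5.95) and Pdgfrb among the falls (-5.28), and Cdh5, Kdr and Col1a1 are not listed. The part of such cells in the results above was not tested. The change of F13a1 was 3.62 without Pre-BMP library 3, and the change of Pdgfrb was -6.37 to -3.94 without basophil library 1 or 3. Csf1r passed the threshold without Pre-BMP library 3 (limma adjusted p 2.2e-05).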

How the data were processed

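RNA-seq libraries of sorted mouse bone marrow cells were prepared by SmartSeq v4 with Nextera XT, per the labels' protocols. The deposited table gives log2 CPM, reads per 1000000, that the authors made from read counts with 0.5 read added and library sizes scaled by a factor for each library, per the values. Trimmomatic, STAR, deepTools and HTSeq are named, without versions, per the submitters' processing notes. For genome build, annotation and strand of counting: not given in the sources used here. Whole reads were recovered from the deposited log2 values, and CPM was computed as reads in every 1e+06 of the scaled library size. The table's 3 rows that name no gene were left out of tests: reads with no feature were 9.15 to 10.2% of a Pre-BMP library and 11.2 to 12.6% of a basophil library.

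limma 3.58.1 (R 4.3.3) was fitted to the deposited log2 values of all 12 libraries in 4 groups, with p-values adjusted by the Benjamini-Hochberg method over 14560 genes, and was checked on simulated data. Samples were grouped by the labels. A fold against a population at 0 was set against 3 reads per library. Genes named are the 5 markers, genes of the gates, the 10 largest rises and falls among called genes without overlap and with a mean of at least 10 CPM in the higher population, the 8 genes whose read share rose or fell most, and by a rule the leading members of each list. Further members with a known role were chosen after their values were seen. The members and lists were chosen with earlier results of these data known. Alternatives were 3 scalings or normalizations, a low-level filter, 5 reads added, voom weights, the 6 libraries alone, a change of at least 1 on the log2 scale, a replicate block and each library left out. Promoter windows are from RefSeq (GRCm38.p6). Some genes that the rule for named genes selects are not reported here.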

Additional observations from a re-analysis of the deposited data

How the results depend on the processing

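Against 2019 genes higher and 2408 lower, the alternatives that ask no size of change gave 1379 to 2357 higher and 1837 to 3813 lower, the 3813 with reads on listed genes as library size. Leaving out 1 library gave 1642 to 1791 higher and 1837 to 2302 lower. With a change of at least 1 on the log2 scale asked as well, 1310 were higher, 1595 lower, and 364 list members were called in place of 634. Of 4427 calls, 2648 held in each of the 14 alternatives that tested the gene, where the low-level filter left some genes untested. Srgn, not called, was at 0.04 and turned to -0.28 with reads on listed genes as library size and -0.68 with quantile normalization, both called, while with quantile normalization Hmgb2, Ifitm1, Nfe2 and Rfc2 turned to -0.088, -0.25, -0.070 and -0.034 and were not called. The cause was not tested. Libraries of the same number do not deviate together: the correlations of their deviations over 8128 genes were -0.00287, 0.0537 and -0.0339, so the numbers were not taken to pair the samples, and with a replicate block 1938 genes were higher and 2348 lower, Itga2 and Top2a were called (limma adjusted p 0.042 and 0.036), and Adora3, Alas2, Hk1, Ifitm1, Irf8, Itgb5, Maob, Mthfd2 and Vamp7 were not (0.051 to 0.073). A population of 3 libraries and a spread estimated from all 12 limit the precision. Genes at 0 in 1 population have no measured fold, only a bound set by depth, where 3 reads are 0.0574 to 0.0610 CPM in Pre-BMPs and 0.0692 to 0.0694 CPM in basophils.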

Other observations

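Stress, interferon and antigen presentation genes fall outside the comparisons above. Of 24 immediate early and dissociation genes, 11 were called higher in basophils and 4 lower, with a median log2 change of 1.20. Zfp36, which encodes an RNA-decay factor, had 1.55, 0.633 and 2.30 CPM in Pre-BMPs and 81.7, 57.6 and 52.3 CPM in basophils (change 5.57 (SE 0.51), limma adjusted p 1.2e-05), and Junb 28.6, 29.1 and 29.6 CPM and 191, 157 and 144 CPM (change 2.49 (SE 0.16), limma adjusted p 1e-06). Fosl2 and Socs3 rose by 2.93 and 6.13. Fos had 1.38, 1.63 and 3.64 CPM and 2.27, 0.463 and 1.89 CPM and was not called, and the heat shock genes Hspa1a, Hspa1b and Hspa8 fell by 2.94, 3.80 and 0.48 on the log2 scale. Dusp2, a phosphatase of MAP kinases, fell from 25.2, 19.6 and 13.5 CPM to 1.46, 0 and 0 CPM (change -8.34 (SE 1.42), limma adjusted p 0.0011). The 2 populations were sorted through different gates, and a part of handling in these values was not tested. The change of Hspa1a was -3.76 without basophil library 2 and -3.60 without Pre-BMP library 3, and the change of Hspa1b was -4.80 to -2.27 without basophil library 1 or 3. The change of Dusp2 was -10.67 to -7.18 without basophil library 1, 2 or 3. The call of Fosl2 did not hold without basophil library 3 and without Pre-BMP library 2 or 3 (limma adjusted p 0.054 to 0.056, change 2.70 to 2.79). The call of Hspa1a did not hold without basophil library 1 or 3, without Pre-BMP library 1 or 2, in a fit of the 6 libraries alone, with quantile normalization and with voom weights (limma adjusted p 0.051 to 0.16, change -3.16 to -1.68). The call of Hspa1b did not hold without Pre-BMP library 3 and in a fit of the 6 libraries alone (limma adjusted p 0.057 to 0.077, change -3.80 to -3.55).

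Of 18 MHC and antigen processing genes, 5 were called lower (27.8%) and 2 higher (11.1%), against 16.5% and 13.9% of all genes. H2-D1 and H2-T23, of class I, rose by 0.87 and 0.47, while H2-Q7 fell by 1.096, Nlrc5, the activator of class I genes, by 5.27 and H2-DMa, of class II loading, by 2.34 on the log2 scale. Class I genes are near copies that can share reads. H2-Aa had 0 reads in all 6 libraries and Cd74 0 in all basophil libraries. Of 29 interferon response genes, 5 were called higher (Samhd1, Irf1, Ddx58, Ifitm1 and Ifitm2) and 2 lower (Oas1a and Gbp3). These are 17.2% and 6.90%, against 13.9% and 16.5% of all genes. The higher count was 2 with reads on listed genes as library size, without basophil library 3 or without Pre-BMP library 1. The change of Nlrc5 was -6.93 to -3.74 without basophil library 2 or 3. The call of H2-D1 did not hold with quantile normalization (limma adjusted p 0.066, change 0.21). The call of H2-T23 did not hold without basophil library 1 or 3, without Pre-BMP library 1 or 2, with quantile normalization and with reads on listed genes as library size (limma adjusted p 0.058 to 0.99, change 0.00 to 0.49).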
